A study of Mus musculus with 28 samples.

Results

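Liver tumors were compared with the non-tumor liver of the same mice, in chow-fed animals bred to lose interleukin-17 receptor A (IL-17RA) in hepatocytes. The comparison used 6 of the 28 libraries of the study: 3 tumors and 3 non-tumor livers of the group named dHEP, from the mice numbered dHEP-155, dHEP-164 and dHEP-165. These libraries were chosen by genotype, diet and tissue as the labels give them, and each tumor was set against non-tumor liver under the same animal number. The dHEP mice carried a floxed Il17ra gene and Cre under the albumin promoter (AlbCre_IL17RA_floxflox in the labels), on a C57BL/6 background. They had been injected with diethylnitrosamine (DEN), a liver carcinogen, at 25 mg/kg when 2 weeks old, and were then kept on chow for 18 weeks. Both tissues of all 3 mice shared the inherited alleles, the carcinogen and the diet. How far Il17ra was deleted in each tissue was not measured here. The other groups used below were dHEP mice on an alcohol diet labelled HFD_alcohol (8 libraries, 4 tumors and 4 non-tumor livers of the same mice) and chow-fed mice with the floxed gene and no Cre, named FF (6 libraries, 3 tumors and 3 non-tumor livers under different animal numbers). All of them had the same background and DEN injection. FF mice on the alcohol diet (4 mice with both tissues), given DEN at the same dose and age, entered the fits for the shared estimate of the spread. Albumin-driven Cre is meant to act in hepatocytes, and whether it acted in other liver cells was not measured here. The labels give no sex.

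IL-17RA is the shared signalling chain of the receptors for interleukin-17 cytokines, which act through NF-kB and induce chemokines, lipocalin-2 and other inflammatory genes. In the adult liver, hepatocytes divide rarely and differ by position: periportal cells make urea and glucose, and pericentral cells, kept so by Wnt signals, make glutamine and hold many cytochrome P450 enzymes. Pulsatile growth hormone gives male mouse liver its own program, with major urinary proteins (MUPs) at very high levels. DEN tumors of mouse liver are hepatocellular, and DEN given to young mice is known for activating mutations in the RAS and MAPK pathway.

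Expression was measured by RNA sequencing of whole tissue and was deposited as CPM, reads per 1000000 reads assigned to genes. Depth, estimated from the step between low values, was 14.81 to 17.13 M reads (M, 1000000) in the tumors and 10.62 to 13.50 M in non-tumor liver. Below, values given in threes are CPM for mice dHEP-155, dHEP-164 and dHEP-165, kept in that order. Each log2 fold change is tumor minus non-tumor liver on log2(CPM + 1), the mean of the 3 within-mouse differences, ± its standard error (SE). It came from a limma fit of 22 libraries of mice with both tissues, with the animal as a block, and adjusted p values are Benjamini-Hochberg values over all genes tested. A gene is called, and said to have risen or fallen, at an adjusted p under 0.05. CPM is not corrected for gene length, so levels are compared between tissues and not between genes. In whole tissue, fewer cells of a type and less RNA per cell cannot be told apart. The labels number the animals and say nothing else of their origin, so p values measure only the spread between the mice of that fit. That spread was pooled over dHEP chow (3 pairs), dHEP alcohol (4 pairs) and FF alcohol (4 pairs).

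Of 13281 genes tested, 3882 (29.2%) were called, 2398 (18.1%) higher in tumors and 1484 (11.2%) lower. The 3 tumors and 3 non-tumor livers did not overlap at 5138 genes (38.7%), of which 3121 were higher in all tumors and 2017 lower. Of the called genes, 1211 lay above 1 and 782 below -1 on the log2 scale. The median log2 fold change over all tested genes was 0.14. It stood at 0.33 in mouse dHEP-155, -0.09 in mouse dHEP-164 and 0.14 in mouse dHEP-165. Scaling the libraries by median-of-ratios factors moved the median from 0.14 to 0.02 and the calls to 2102 higher and 2136 lower, against 2398 and 1484 (61.8% of calls higher), so small shifts common to many genes depend on the scaling. The 10 highest genes took 19.4%, 33.0% and 22.8% of the CPM in the tumors and 15.4%, 15.7% and 15.6% in non-tumor liver. Mouse dHEP-155 carried the most weight: without it 1972 genes were called (1041 higher, 931 lower), against 3214 without mouse dHEP-164 and 3071 without mouse dHEP-165. The non-tumor livers resembled each other closely, and the tumors differed more among themselves, as described at the end.

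Il17ra, the targeted gene, read 29.4, 13.02 and 15.4 CPM in the tumors, against 8.34, 10.4 and 9.98 CPM in non-tumor liver. All 3 tumors lay above all non-tumor livers, most of all the tumor of mouse dHEP-155. The difference did not pass the test (log2 fold change 0.86 ± 0.31, adjusted p = 0.0575), and 3 pairs cannot give an exact two-sided sign-flip p below 0.25, the value found. Il17ra was called when mouse dHEP-164 was left out (1.14, adjusted p = 0.0472). Chow-fed FF mice, whose floxed gene meets no Cre, read 29.9, 20.8 and 30.1 CPM in tumors and 23.1, 20.2 and 14.7 CPM in non-tumor liver. All 3 dHEP non-tumor livers lay below all FF non-tumor livers, while the tumors of the 2 genotypes overlapped. Which exons are floxed is not given in the sources used here, so the CPM of the whole gene may hold reads of the deleted transcript, and reads of hepatocytes cannot be told apart from those of other cells.

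The largest changes were in hepatocyte enzymes, fetal liver genes and secreted proteins. Among called genes without overlap, the 12 with the largest rises were Cyp2a4, Gpc3, Afp, Psat1, Igdcc4, Cdh17, Scd2, Klrb1b, Gldn, Cd63, Cyp2b9 and Hid1. Psat1, the aminotransferase of serine synthesis, read 60.9, 47.5 and 65.0 CPM in the tumors, against 0.656, 1.04 and 0.659 CPM in non-tumor liver (log2 fold change 5.04 ± 0.67, adjusted p = 0.000394). The tumor level was alike in all 3 mice, and non-tumor liver read near or under 1 CPM. Scd2, the stearoyl-CoA desaturase of fetal liver and brain, read 826, 588 and 742 CPM in the tumors, against 51.3, 12.8 and 18.9 CPM in non-tumor liver (log2 fold change 4.87 ± 0.66, adjusted p = 0.000472). Igdcc4, an immunoglobulin-family surface protein of fetal liver cells, read 60.4, 45.0 and 43.9 CPM in the tumors, against 0.844, 0.0741 and 1.22 CPM in non-tumor liver (log2 fold change 4.94 ± 0.58, adjusted p = 0.000251). Both were higher in each tumor than in any non-tumor liver by over 10 fold. Cd63, a tetraspanin of late endosomes and secreted vesicles, read 100.4, 86.8 and 103 CPM in the tumors, against 4.74, 2.05 and 2.73 CPM in non-tumor liver (log2 fold change 4.60 ± 0.42, adjusted p = 9.81e-05). Hid1, a protein of secretory granule formation, read 86.1, 79.7 and 59.8 CPM in the tumors, against 2.90, 3.11 and 2.17 CPM in non-tumor liver (log2 fold change 4.35 ± 0.48, adjusted p = 0.000174). Gldn, gliomedin, known from peripheral nerve, read 36.0, 140.1 and 110.3 CPM in the tumors, against 4.03, 1.04 and 2.64 CPM in non-tumor liver (log2 fold change 4.64 ± 0.76, adjusted p = 0.00123). These 3 kept their calls whichever mouse was left out.

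Unlike Scd2 and Igdcc4, the genes Gpc3, Afp and Cdh17 among the largest rises varied widely between tumors. Gpc3, glypican-3, a cell surface proteoglycan of fetal liver and hepatocellular carcinoma, read 454, 166 and 16.1 CPM in the tumors, against 2.34, 0.444 and 1.79 CPM in non-tumor liver (log2 fold change 5.52 ± 1.35, adjusted p = 0.0107). Afp, alpha-fetoprotein, read 478, 208 and 33.4 CPM in the tumors, against 5.998, 1.41 and 4.14 CPM in non-tumor liver (log2 fold change 5.09 ± 1.44, adjusted p = 0.0208). Cdh17, an intestinal cadherin, read 198, 139.5 and 1.08 CPM in the tumors, against 0.469, 0.0741 and 0.282 CPM in non-tumor liver (log2 fold change 4.94 ± 1.49, adjusted p = 0.0274). For all of them the tumor of mouse dHEP-165 was the lowest of the 3, yet above every non-tumor liver. Klrb1b, a lectin-like receptor gene known from natural killer cells, was lowest in that tumor too, with 87.3, 102 and 12.9 CPM in the tumors, against 0.937, 1.09 and 0.833 CPM in non-tumor liver (log2 fold change 4.68 ± 1.19, adjusted p = 0.0127). None of the 4 was called when mouse dHEP-155 or mouse dHEP-164 was left out. Without mouse dHEP-155 the values were 4.73 and adjusted p = 0.0863 for Gpc3, 4.59 and adjusted p = 0.121 for Afp, 3.86 and adjusted p = 0.185 for Cdh17 and 4.27 and adjusted p = 0.0835 for Klrb1b. Without mouse dHEP-164 they were 4.85 and adjusted p = 0.0618 for Gpc3, 4.42 and adjusted p = 0.0989 for Afp, 3.89 and adjusted p = 0.142 for Cdh17 and 4.21 and adjusted p = 0.0651 for Klrb1b.

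**Figure D1:**
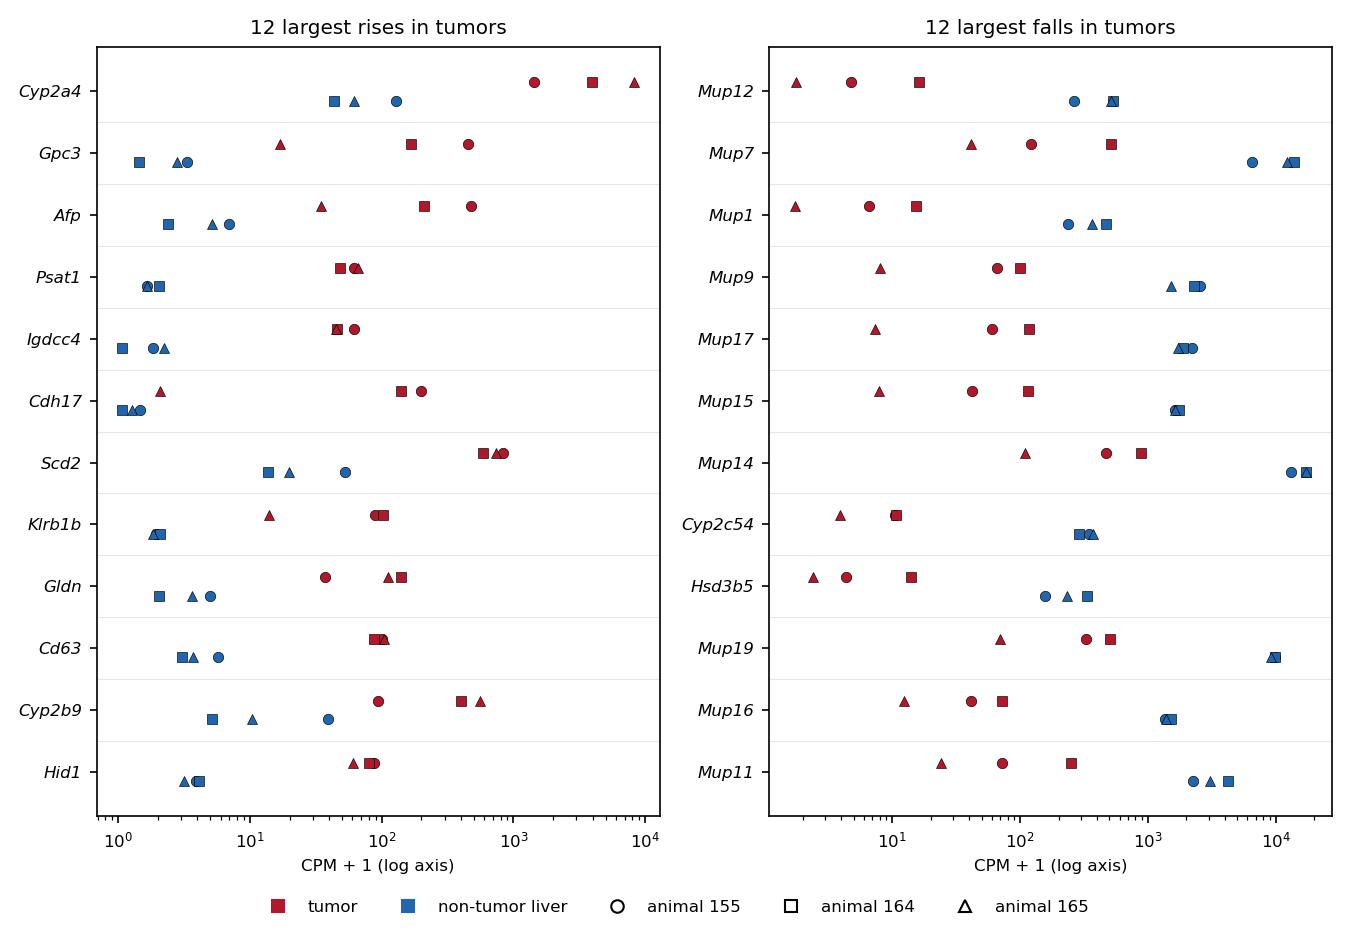
CPM + 1 on a log axis of the 12 genes with the largest rises (left panel) and the 12 with the largest falls (right panel), with 1 marker for each library; red marks tumors, drawn above, blue marks non-tumor liver, and the shape marks the mouse. For every gene the 3 tumors lie on one side of the 3 non-tumor livers, as the rule for naming them required.

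Of the 12 largest falls, 10 were MUPs (Mup12, Mup7, Mup1, Mup9, Mup17, Mup15, Mup14, Mup19, Mup16 and Mup11), and the others were Cyp2c54 and Hsd3b5. Mup7 read 121, 514 and 40.0 CPM in the tumors, against 6527, 13906 and 12163 CPM in non-tumor liver (log2 fold change -6.24 ± 0.98, adjusted p = 0.00104). Mup12 read 3.75, 15.2 and 0.774 CPM in the tumors, against 264, 536 and 511 CPM in non-tumor liver (log2 fold change -6.34 ± 0.70, adjusted p = 0.000174). For both, the tumor of mouse dHEP-165 was lowest. MUPs are secreted pheromone carriers of nearly identical sequence, so how reads were split among them is uncertain, and the single genes are less certain than the family. Mup20, darcin, the MUP known as a male pheromone, read 4754, 2919 and 3885 CPM in the tumors, against 4041, 6827 and 5818 CPM in non-tumor liver, with groups that overlapped and no call (log2 fold change -0.52 ± 0.83, adjusted p = 0.661).

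The male program of the liver was lower and several female-biased genes were higher. Of 24 tested male-biased genes, 19 fell (79.2%, against 11.2% of all genes) and 0 rose, with a median log2 fold change of -3.77 against 0.14 over all genes. The median was alike in the 3 mice, at -3.86, -3.67 and -4.20. Outside the MUPs, Hsd3b5, a male-specific steroid reductase, read 3.33, 12.98 and 1.39 CPM in the tumors, against 154, 331 and 232 CPM in non-tumor liver (log2 fold change -5.45 ± 0.70, adjusted p = 0.000341). Cyp7b1, an oxysterol 7-alpha-hydroxylase that clears oxysterols and steroids, read 13.4, 21.0 and 13.9 CPM in the tumors, against 278, 579 and 423 CPM in non-tumor liver (log2 fold change -4.61 ± 0.62, adjusted p = 0.000438). Cyp2d9, a male-biased steroid hydroxylase, fell less, with 184, 311 and 167.1 CPM in the tumors, against 756, 1206 and 1294 CPM in non-tumor liver (log2 fold change -2.31 ± 0.24, adjusted p = 0.000160). Susd4, a complement regulator, read 1.55, 3.04 and 1.15 CPM in the tumors, against 25.8, 38.4 and 35.3 CPM in non-tumor liver (log2 fold change -3.59 ± 0.39, adjusted p = 0.000172). No tumor reached the lowest non-tumor liver at any of these 4 genes. The count of male-biased genes that fell was 18 whichever mouse was left out.

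Of 16 tested female-biased genes, 6 rose (37.5%, against 18.1% of all genes) and 0 fell, with a median of 1.82. The medians by mouse were unlike, at 0.32, 0.87 and 2.52, highest in mouse dHEP-165. In mouse dHEP-155 the median over all genes was 0.33, so the list did not stand apart there. The rises numbered 5 without mouse dHEP-155, 4 without mouse dHEP-164 and 4 without mouse dHEP-165. Cyp2a4, a steroid 15-alpha-hydroxylase, read 1424, 3968 and 8213 CPM in the tumors, against 127, 42.7 and 60.5 CPM in non-tumor liver (log2 fold change 5.68 ± 0.89, adjusted p = 0.00102). Its near copy Cyp2a5 shares much of its sequence, so their reads may be split wrongly; Cyp2a5 read 840.5, 402 and 2441 CPM in the tumors, against 430.0, 522 and 749.9 CPM in non-tumor liver and was not called. Cyp2b9, a female-biased P450, read 92.6, 400.0 and 553 CPM in the tumors, against 37.95, 4.18 and 9.35 CPM in non-tumor liver (log2 fold change 4.43 ± 0.96, adjusted p = 0.00564). Abcd2, a peroxisomal fatty acid transporter, read 63.7, 141 and 184 CPM in the tumors, against 19.96, 5.48 and 11.5 CPM in non-tumor liver (log2 fold change 3.33 ± 0.64, adjusted p = 0.00295). In all 3 of these genes the tumors of mice dHEP-164 and dHEP-165 were above that of mouse dHEP-155. Sult2a2, a sulfotransferase, stood at 4.54, 2.41 and 5.07 CPM in the tumors, against 0.187, 0 and 0 CPM in non-tumor liver, and its call (2.20 ± 0.65, adjusted p = 0.0252) was lost whichever mouse was left out (adjusted p = 0.105, 0.0577 and 0.101 without mouse dHEP-155, dHEP-164 and dHEP-165). Other female-biased genes, among them Hao2 (0.238, 2.16 and 103 CPM in the tumors, against 1.78, 0.148 and 0.659 CPM in non-tumor liver), were not called.

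Genes of the growth hormone axis were lower as well, with 7 of 14 that fell, against 11.2% of all genes (median -0.75). The 1 gene that rose made up 7.14% of the list, below the 18.1% of all genes. Igf1, the growth factor that hepatocytes secrete in response to growth hormone, read 42.8, 69.4 and 156.6 CPM in the tumors, against 765, 738 and 727 CPM in non-tumor liver (log2 fold change -3.24 ± 0.48, adjusted p = 0.000774). Ghr, the growth hormone receptor, read 89.8, 98.4 and 309 CPM in the tumors, against 584, 547 and 575 CPM in non-tumor liver (log2 fold change -2.01 ± 0.33, adjusted p = 0.00123), and Igfals, which holds IGF1 in the circulating complex, read 5.96, 16.2 and 42.3 CPM in the tumors, against 109, 127 and 117 CPM in non-tumor liver (log2 fold change -2.78 ± 0.50, adjusted p = 0.00215). Among the tumors, that of mouse dHEP-165 was highest for all 3 of these genes, and still below every non-tumor liver. Lifr, the leukemia inhibitory factor receptor, fell less (-1.14 ± 0.22, adjusted p = 0.00301). Stat5b, the transcription factor of the pathway, was called at a small change (-0.43 ± 0.14, adjusted p = 0.0340) with overlapping groups, and Socs2 and Cish, which it induces, were not called. The riser was Igfbp1, an IGF-binding protein, at 1255, 1183 and 404 CPM in the tumors, against 570.4, 143 and 55.9 CPM in non-tumor liver (log2 fold change 2.33 ± 0.69, adjusted p = 0.0250), and it was not called without mouse dHEP-164 (adjusted p = 0.117) or without mouse dHEP-165 (adjusted p = 0.104). The call of Stat5b was lost without mouse dHEP-155 (adjusted p = 0.181) or without mouse dHEP-164 (adjusted p = 0.114).

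**Figure D2:**
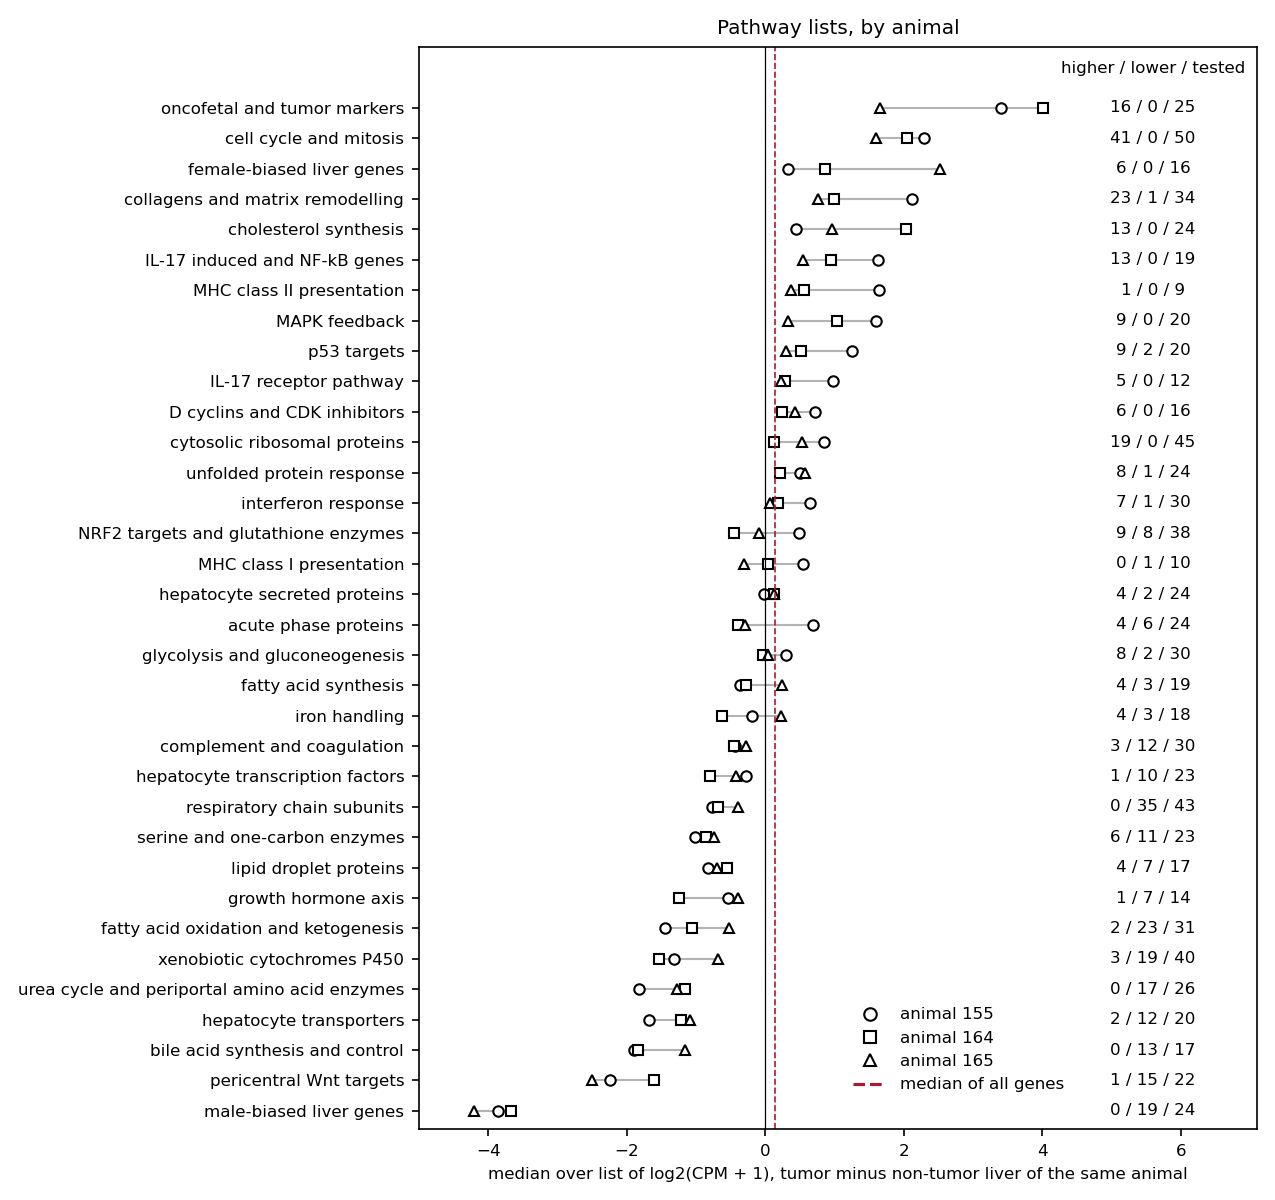
Median log2 difference, tumor minus non-tumor liver, of the tested members of the 34 pathway lists, with 1 marker shape for each mouse, the median of all genes as a dashed line, and the members called higher, called lower and tested printed at the right. The male-biased list lies lowest, at -3.86, -3.67 and -4.20, and the oncofetal and cell cycle lists are at the top by their median fold change, with mouse dHEP-165 below the other mice for both.

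Pericentral genes were mostly lower in tumors. Of 22 tested pericentral and Wnt target genes, 15 fell (68.2%) and 1 rose, with a median of -2.08. Cyp2e1, the ethanol- and DEN-oxidising P450, read 273, 405 and 329 CPM in the tumors, against 5441, 6444 and 6508 CPM in non-tumor liver (log2 fold change -4.20 ± 0.56, adjusted p = 0.000421). Oat, ornithine aminotransferase, read 56.0, 56.8 and 19.2 CPM in the tumors, against 1197, 919 and 970.4 CPM in non-tumor liver (log2 fold change -4.66 ± 0.89, adjusted p = 0.00289). Every tumor was far below every non-tumor liver for both. Prodh, proline dehydrogenase, read 19.2, 11.2 and 20.4 CPM in the tumors, against 205, 189 and 254 CPM in non-tumor liver (log2 fold change -3.63 ± 0.47, adjusted p = 0.000341). The direct Wnt targets of the list were divided, since Rnf43, Znrf3, Sp5 and Tcf7 were not called, and Nkd1 (-0.91 ± 0.25, adjusted p = 0.0196) lost its call whichever mouse was left out (adjusted p = 0.0984, 0.0538 and 0.0639 without mouse dHEP-155, dHEP-164 and dHEP-165). Notum, a secreted Wnt inhibitor, read 2.74, 6.49 and 3.07 CPM in the tumors, against 22.7, 26.5 and 20.02 CPM in non-tumor liver (log2 fold change -2.30 ± 0.31, adjusted p = 0.000421). Axin2, a negative regulator of the pathway, read 1.85, 1.17 and 1.01 CPM in the tumors, against 6.02, 6.30 and 7.82 CPM in non-tumor liver (log2 fold change -1.73 ± 0.30, adjusted p = 0.00182), and Lgr5, an R-spondin receptor, read 2.38, 3.10 and 0.675 CPM in the tumors, against 13.6, 10.2 and 10.6 CPM in non-tumor liver (log2 fold change -2.12 ± 0.37, adjusted p = 0.00183). None of these 3 overlapped between tissues. Glul, glutamine synthetase, read 223, 124 and 172 CPM in the tumors, against 1213, 988 and 1129 CPM in non-tumor liver (log2 fold change -2.71 ± 0.73, adjusted p = 0.0170), and its call was lost without mouse dHEP-155 (adjusted p = 0.0653). Slc1a4, a neutral amino acid transporter, was the exception that rose (1.59 ± 0.49, adjusted p = 0.0299), with overlapping groups and no call without mouse dHEP-155 or without mouse dHEP-164 (adjusted p = 0.163 and 0.132). The call of Glul was lost without mouse dHEP-164 (adjusted p = 0.0692) or without mouse dHEP-165 (adjusted p = 0.0571).

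Of 40 tested genes of the xenobiotic P450 list, which holds their reductase too, 19 fell (47.5%) and 3 rose, with a median of -0.99. The largest called falls of the list were in the Cyp2c cluster, whose enzymes oxidise drugs and arachidonic acid. Not all of the cluster fell, since Cyp2c40, Cyp2c68, Cyp2c69 and Cyp2c70 were not called. Cyp2c54 read 9.43, 9.75 and 2.90 CPM in the tumors, against 348, 288 and 372 CPM in non-tumor liver (log2 fold change -5.46 ± 0.58, adjusted p = 0.000162), and Cyp2c37 read 16.6, 24.3 and 9.54 CPM in the tumors, against 509, 459.9 and 502 CPM in non-tumor liver (log2 fold change -4.87 ± 0.51, adjusted p = 0.000162). Cyp2c23, an epoxygenase, read 17.4, 36.3 and 43.8 CPM in the tumors, against 253, 352 and 346 CPM in non-tumor liver (log2 fold change -3.33 ± 0.36, adjusted p = 0.000172). The tumor of mouse dHEP-165 was the lowest for Cyp2c54 and Cyp2c37 and the highest tumor for Cyp2c23. Near-identical copies in this cluster share reads, so the single genes are uncertain. Cyp1a2, the methylxanthine-oxidising P450, fell as well (-4.11 ± 0.64, adjusted p = 0.000979). The risers were the female-biased Cyp2a4, Cyp2b9 and Cyp3a44, and Cyp3a44 was high in 1 tumor, with 2.23, 0.646 and 334 CPM in the tumors, against 0.125, 0.491 and 0.438 CPM in non-tumor liver (log2 fold change 3.18 ± 1.05, adjusted p = 0.0406). Without mouse dHEP-165 its log2 fold change was 0.83 and adjusted p = 0.287, and the call was lost without mouse dHEP-155 too (adjusted p = 0.0590).

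Of 23 tested hepatocyte transcription factors, 10 fell (43.5%) and 1 rose (median -0.48). The nuclear receptors that sense foreign compounds and bile acids fell. Nr1i3, the constitutive androstane receptor, read 11.7, 15 and 3.98 CPM in the tumors, against 147, 133 and 193 CPM in non-tumor liver (log2 fold change -3.96 ± 0.42, adjusted p = 0.000162). Nr1i2, the pregnane X receptor, read 16.9, 37.8 and 37.95 CPM in the tumors, against 83.3, 79.9 and 86.9 CPM in non-tumor liver (log2 fold change -1.49 ± 0.22, adjusted p = 0.000715), and Nr1h4, the bile acid receptor FXR, read 33.7, 52.5 and 81.6 CPM in the tumors, against 120.0, 134 and 109.7 CPM in non-tumor liver (log2 fold change -1.19 ± 0.23, adjusted p = 0.00315). The oxysterol receptor Nr1h3 fell less (-0.53 ± 0.11, adjusted p = 0.00382). The falls of the list numbered 6 without mouse dHEP-164. Hnf4a, a factor that defines hepatocyte identity, was not called, with 672, 682 and 620.0 CPM in the tumors, against 517, 874 and 742 CPM in non-tumor liver (log2 fold change -0.08 ± 0.19, adjusted p = 0.785) and overlapping groups. Foxa3, a pioneer factor, was the riser (1.03 ± 0.28, adjusted p = 0.0172), with tumor values of 71.2, 131 and 163.6 CPM and non-tumor values of 38.6, 78.3 and 57.9 CPM that overlapped. The call of Foxa3 was lost without mouse dHEP-155 (adjusted p = 0.0585) or without mouse dHEP-165 (adjusted p = 0.106).

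Bile acid synthesis was lower. Of 17 tested genes, 13 fell (76.5%) and 0 rose, with a median of -1.56. Cyp27a1, which starts the acidic pathway by oxidising the sterol side chain, read 49.7, 69.8 and 61.8 CPM in the tumors, against 515, 508 and 561 CPM in non-tumor liver (log2 fold change -3.12 ± 0.32, adjusted p = 0.000133). Scp2, which shortens the side chain in peroxisomes, read 826, 797 and 1263 CPM in the tumors, against 3867, 4068 and 3846 CPM in non-tumor liver (log2 fold change -2.06 ± 0.25, adjusted p = 0.000297). Amacr, the racemase of that pathway, read 34.2, 50.7 and 52.3 CPM in the tumors, against 129, 115 and 130.4 CPM in non-tumor liver (log2 fold change -1.45 ± 0.19, adjusted p = 0.000341). The groups were far apart in all of them. Cyp7a1, the rate-limiting enzyme of the classical pathway, split the tumors, with 9.53, 10.9 and 122 CPM in the tumors, against 164.3, 216 and 90.7 CPM in non-tumor liver (log2 fold change -2.58 ± 0.88, adjusted p = 0.0441). Cyp8b1, the 12-alpha-hydroxylase that sets the cholic acid share, did likewise, with 13.5, 12.3 and 246 CPM in the tumors, against 359, 169.8 and 275 CPM in non-tumor liver (log2 fold change -2.83 ± 0.83, adjusted p = 0.0249). For both, the tumor of mouse dHEP-165 lay inside the range of non-tumor liver, and the call was lost without mouse dHEP-155 (adjusted p = 0.267 for Cyp7a1 and 0.209 for Cyp8b1) or without mouse dHEP-164 (adjusted p = 0.230 and 0.117 in the same order of genes).

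Of 20 tested hepatocyte transporters, 12 fell (60.0%) and 2 rose (median -1.39). Uptake carriers of the sinusoidal membrane fell most. Slco1b2, an organic anion carrier, read 110.1, 118 and 73.1 CPM in the tumors, against 1487, 1578 and 1602 CPM in non-tumor liver (log2 fold change -3.97 ± 0.57, adjusted p = 0.000633). Slco2b1, another organic anion carrier, read 31.6, 18.03 and 22.7 CPM in the tumors, against 187, 177 and 217 CPM in non-tumor liver (log2 fold change -2.98 ± 0.30, adjusted p = 0.000132), and Slc17a2, a phosphate carrier, read 20.6, 50.9 and 46.6 CPM in the tumors, against 174, 262 and 202 CPM in non-tumor liver (log2 fold change -2.49 ± 0.24, adjusted p = 0.000116). No tumor came near the non-tumor levels of these 3. The 2 risers were efflux pumps. Abcb1a, P-glycoprotein, read 21.9, 29.7 and 16.6 CPM in the tumors, against 4.297, 3.55 and 5.59 CPM in non-tumor liver (log2 fold change 2.10 ± 0.54, adjusted p = 0.0140), with no call without mouse dHEP-155 (adjusted p = 0.0685) or mouse dHEP-164 (adjusted p = 0.0798). Abcc4, which exports bile salts and nucleotides, read 190.1, 8.23 and 81.5 CPM in the tumors, against 10.2, 6.15 and 6.78 CPM in non-tumor liver (log2 fold change 2.62 ± 0.70, adjusted p = 0.0155) and overlapped. It was not called without mouse dHEP-155 (adjusted p = 0.143) or mouse dHEP-165 (adjusted p = 0.0835).

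Periportal amino acid metabolism was lower too. Of 26 tested urea cycle and periportal enzymes, 17 fell (65.4%) and 0 rose, with a median of -1.38. Hpd, of tyrosine breakdown, read 88.0, 149 and 116 CPM in the tumors, against 1822, 1779.6 and 1961 CPM in non-tumor liver (log2 fold change -3.998 ± 0.61, adjusted p = 0.000888). Pck1, the cytosolic enzyme of gluconeogenesis, read 487, 796 and 188 CPM in the tumors, against 3443, 3697 and 3694 CPM in non-tumor liver (log2 fold change -3.11 ± 0.53, adjusted p = 0.00153). The groups were far apart in both. Fah, the last enzyme of tyrosine breakdown, read 224, 270.3 and 326 CPM in the tumors, against 568, 570.2 and 629.5 CPM in non-tumor liver (log2 fold change -1.12 ± 0.20, adjusted p = 0.00224), and Tdo2, the dioxygenase of tryptophan, read 492, 1040.3 and 541 CPM in the tumors, against 1155, 1589.5 and 1466 CPM in non-tumor liver (log2 fold change -1.09 ± 0.20, adjusted p = 0.00204). Cps1, which commits ammonia to urea, read 698, 2631 and 2499 CPM in the tumors, against 6002, 7665 and 6975 CPM in non-tumor liver (log2 fold change -2.04 ± 0.51, adjusted p = 0.0116), and without mouse dHEP-155 it was not called (-1.51 and adjusted p = 0.112). The count of falls was 7 without mouse dHEP-155, 14 without mouse dHEP-164 and 13 without mouse dHEP-165.

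Serine synthesis and the methionine cycle moved apart. In the list of 23 serine, folate and methionine enzymes, 6 rose (26.1%) and 11 fell (47.8%), with a median of -0.70. The risers included all 3 enzymes of serine synthesis, Psat1, Phgdh and Psph. Psph, which releases serine, read 16.1, 25.3 and 12.02 CPM in the tumors, against 5.998, 4.07 and 4.42 CPM in non-tumor liver (log2 fold change 1.64 ± 0.26, adjusted p = 0.00103). Mthfd1l, the mitochondrial formate-producing enzyme, read 18.1, 18.3 and 7.36 CPM in the tumors, against 2.25, 1.41 and 0.659 CPM in non-tumor liver (log2 fold change 2.63 ± 0.33, adjusted p = 0.000305). Phgdh, the first enzyme, read 29.7, 19.7 and 2.499 CPM in the tumors, against 1.12, 1.21 and 0.282 CPM in non-tumor liver (log2 fold change 2.84 ± 0.62, adjusted p = 0.00594) and was lowest in the tumor of mouse dHEP-165. Enzymes that hepatocytes use for choline and methionine fell, among them Dmgdh, dimethylglycine dehydrogenase, with 92.5, 87.8 and 179 CPM in the tumors, against 537, 478 and 616 CPM in non-tumor liver (log2 fold change -2.25 ± 0.34, adjusted p = 0.000915). Bhmt, which remethylates homocysteine with betaine, read 460.0, 441 and 2001 CPM in the tumors, against 5752, 3065 and 6249.7 CPM in non-tumor liver (log2 fold change -2.69 ± 0.53, adjusted p = 0.00330). The count of falls was 3 without mouse dHEP-155 and 4 without mouse dHEP-164, and the count of rises was 3 without mouse dHEP-155. The call of Phgdh was lost without mouse dHEP-155 (adjusted p = 0.0604).

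Fatty acid oxidation was lower, with 23 of 31 tested genes that fell (74.2%) and 2 that rose (median -0.96). Acaa1b, the peroxisomal thiolase, read 118, 104 and 136 CPM in the tumors, against 1134, 829 and 1146 CPM in non-tumor liver (log2 fold change -3.10 ± 0.33, adjusted p = 0.000162). Eci1, a mitochondrial enoyl-CoA isomerase, read 28.1, 25.9 and 32.0 CPM in the tumors, against 85.5, 68.8 and 77.8 CPM in non-tumor liver (log2 fold change -1.40 ± 0.16, adjusted p = 0.000236). Cyp4a10, a fatty acid omega-hydroxylase induced by PPAR-alpha, read 13.6, 7.03 and 3.16 CPM in the tumors, against 398, 139.6 and 218 CPM in non-tumor liver (log2 fold change -4.88 ± 0.57, adjusted p = 0.000243). Its neighbour Cyp4a31 went the other way, with 19.3, 28.1 and 25.1 CPM in the tumors, against 2.96, 1.83 and 2.54 CPM in non-tumor liver (log2 fold change 2.87 ± 0.26, adjusted p = 0.000111); these P450 copies share sequence and are uncertain singly. Cpt1a, the gate of mitochondrial fatty acid entry, was not called (388, 337 and 645 CPM in the tumors, against 409.9, 447 and 432 CPM in non-tumor liver). The second riser was Fgf21, a fasting hormone, with 16.6, 0.525 and 24.2 CPM in the tumors, against 0.750, 0.296 and 0.659 CPM in non-tumor liver (log2 fold change 2.496 ± 0.68, adjusted p = 0.0175). The falls numbered 16 without mouse dHEP-155 and 15 without mouse dHEP-164. The call of Fgf21 was lost without mouse dHEP-155 (adjusted p = 0.125) or without mouse dHEP-165 (adjusted p = 0.120).

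Respiratory chain subunits fell by small amounts. Of 43 tested, 35 fell (81.4%), 0 rose, and the median was -0.60. Ndufb3, of complex I, read 17.6, 18.4 and 20.6 CPM in the tumors, against 32.2, 35.9 and 36.0 CPM in non-tumor liver (log2 fold change -0.85 ± 0.13, adjusted p = 0.000949). Cox5b, of complex IV, read 72.4, 72.9 and 97.2 CPM in the tumors, against 138, 143 and 162 CPM in non-tumor liver (log2 fold change -0.87 ± 0.16, adjusted p = 0.00209), and Sdha, of complex II, read 209, 258 and 316 CPM in the tumors, against 489, 476 and 522 CPM in non-tumor liver (log2 fold change -0.94 ± 0.20, adjusted p = 0.00446). In each the 3 tumors were below the 3 non-tumor livers. The mitochondrial genome was not analysed here, so all of these subunits are nuclear-encoded. The falls numbered 8 without mouse dHEP-155, 15 without mouse dHEP-164 and 32 without mouse dHEP-165, while scaling by median of ratios gave 39.

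Fatty acid synthesis genes went in both directions, while cholesterol synthesis was higher as a group. Of 19 tested fatty acid synthesis genes, 4 rose (21.1%) and 3 fell (15.8%), against 18.1% and 11.2% of all genes. Beside Scd2, Pnpla3, a lipid droplet acylhydrolase, read 21.8, 11.2 and 38.9 CPM in the tumors, against 5.34, 1.11 and 2.26 CPM in non-tumor liver (log2 fold change 2.66 ± 0.43, adjusted p = 0.00123). Elovl3, a male-biased fatty acid elongase, fell, with 21.0, 15.5 and 1.35 CPM in the tumors, against 598, 268 and 311 CPM in non-tumor liver (log2 fold change -5.28 ± 0.86, adjusted p = 0.00122). Lpin1, the phosphatidate phosphatase, read 149, 276 and 293 CPM in the tumors, against 309, 847 and 918 CPM in non-tumor liver (log2 fold change -1.44 ± 0.24, adjusted p = 0.00154). Fasn and Scd1, the main enzymes of fatty acid synthesis and desaturation, were not called. Of 24 cholesterol synthesis genes, 13 rose (54.2%) and 0 fell, with a median of 1.16. Srebf2, the transcription factor of the pathway, read 122, 45.4 and 58.8 CPM in the tumors, against 40.0, 21.3 and 31.0 CPM in non-tumor liver (log2 fold change 1.18 ± 0.18, adjusted p = 0.000800). Lss, lanosterol synthase, read 256, 375 and 233 CPM in the tumors, against 85.2, 39.9 and 75.1 CPM in non-tumor liver (log2 fold change 2.13 ± 0.37, adjusted p = 0.00168). Mvd, the decarboxylase of the mevalonate pathway, rose as well (1.86 ± 0.34, adjusted p = 0.00235). Without mouse dHEP-164, whose non-tumor liver read lowest for all 3 of these genes, 5 of the 24 were called higher and 1 lower, and without mouse dHEP-165 there were 8 higher. Of 17 lipid droplet genes, 7 fell (41.2%) and 4 rose (23.5%). Fitm1, of droplet budding, read 4.03, 3.03 and 1.60 CPM in the tumors, against 60.8, 39.5 and 55.4 CPM in non-tumor liver (log2 fold change -3.80 ± 0.42, adjusted p = 0.000174), and Plin5, the droplet coat protein of oxidative tissue, read 7.86, 8.53 and 12.6 CPM in the tumors, against 51.9, 51.5 and 46.7 CPM in non-tumor liver (log2 fold change -2.28 ± 0.29, adjusted p = 0.000320), whereas the main hepatic coat protein Plin2 was not called. The rises of this list numbered 2 whichever mouse was left out, and the falls 4 without mouse dHEP-155.

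Proliferation genes were higher in tumors. Of 50 tested cell cycle and mitosis genes, 41 rose (82.0%, against 18.1% of all genes) and 0 fell, with a median log2 fold change of 1.97 against 0.14 over all genes. The medians by mouse were 2.30, 2.05 and 1.60. Many mitotic genes are known to carry CCAAT boxes, bound by NF-Y, and a CHR element (TTTGAA), bound by the DREAM and MuvB complexes. Of the 50 members, 40 had a promoter in the RefSeq table (GRCm38.p6, 250 bases before to 50 after the start). A gene with several starts was counted if any of them held the motif. CCAAT on either strand was in 29 of the 40 (72.5%), against 41.3% of all 26794 genes with a promoter in that table. TTTGAA on either strand was in 20 of the 40 (50%), against 19.9% of all, and both motifs were in 18 (45.0%), against 8.01%. Among the 10274 tested genes with a promoter the shares were 42.9% for CCAAT, 14.8% for TTTGAA and 6.0% for both. A match of letters is a description and not a site. Promoters of 4 members that rose are shown with these motifs in capitals, TTTGAA or its reverse complement TTCAAA and CCAAT or its reverse complement ATTGG; all 4 genes lie on the minus strand and are printed 5′ to 3′ in their own direction, Mki67 from chr7:135716330-135716629, Ccnb2 from chr9:70421505-70421804, Cenpf from chr1:189688037-189688336 and Top2a from chr11:99024140-99024439.
Mki67: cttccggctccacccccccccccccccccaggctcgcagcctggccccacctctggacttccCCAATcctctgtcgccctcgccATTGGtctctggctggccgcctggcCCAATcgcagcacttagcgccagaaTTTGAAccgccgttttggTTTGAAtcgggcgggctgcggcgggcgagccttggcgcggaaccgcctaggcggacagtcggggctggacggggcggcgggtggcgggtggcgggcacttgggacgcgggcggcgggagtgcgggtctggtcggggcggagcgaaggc
Ccnb2: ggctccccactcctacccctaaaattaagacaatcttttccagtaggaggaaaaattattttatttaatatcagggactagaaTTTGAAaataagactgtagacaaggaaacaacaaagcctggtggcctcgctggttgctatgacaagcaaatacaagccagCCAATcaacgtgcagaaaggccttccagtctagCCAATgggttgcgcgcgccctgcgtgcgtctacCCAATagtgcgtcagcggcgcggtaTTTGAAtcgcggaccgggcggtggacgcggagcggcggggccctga
Cenpf: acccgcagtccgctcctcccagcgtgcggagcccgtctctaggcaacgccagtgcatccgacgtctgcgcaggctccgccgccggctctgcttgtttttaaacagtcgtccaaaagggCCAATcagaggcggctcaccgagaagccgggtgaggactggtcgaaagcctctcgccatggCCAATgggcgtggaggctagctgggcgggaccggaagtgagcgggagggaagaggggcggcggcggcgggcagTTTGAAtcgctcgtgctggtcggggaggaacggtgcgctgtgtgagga
Top2a: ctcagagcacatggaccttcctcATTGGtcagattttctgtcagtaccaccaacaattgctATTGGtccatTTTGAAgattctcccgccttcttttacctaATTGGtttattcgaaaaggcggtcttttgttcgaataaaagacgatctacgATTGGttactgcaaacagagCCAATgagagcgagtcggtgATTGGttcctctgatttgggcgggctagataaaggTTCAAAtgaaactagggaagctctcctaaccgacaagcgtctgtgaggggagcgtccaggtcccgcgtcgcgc

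Mki67, the proliferation marker Ki-67, read 148, 113 and 86.0 CPM in the tumors, against 11.5, 7.04 and 5.74 CPM in non-tumor liver (log2 fold change 3.69 ± 0.38, adjusted p = 0.000159). Its printed promoter held 3 CCAAT and 2 TTTGAA matches. Ccnb2, cyclin B2 of mitotic entry, read 9.41, 9.87 and 15.5 CPM in the tumors, against 1.03, 0.889 and 0.565 CPM in non-tumor liver (log2 fold change 2.76 ± 0.32, adjusted p = 0.000215), and its promoter held 3 and 2 matches. Cenpf, a kinetochore protein, read 27.0, 19.4 and 18.2 CPM in the tumors, against 1.87, 1.04 and 1.79 CPM in non-tumor liver (log2 fold change 3.13 ± 0.40, adjusted p = 0.000341), with 2 and 1 matches, and Top2a, the mitotic topoisomerase, read 67.5, 42.3 and 28.6 CPM in the tumors, against 6.47, 3.33 and 3.11 CPM in non-tumor liver (log2 fold change 3.12 ± 0.40, adjusted p = 0.000354), with 6 and 2. In all 4 genes the lowest tumor was more than 4 times the highest non-tumor liver. Tpx2, a spindle assembly factor, rose likewise (2.93 ± 0.35, adjusted p = 0.000266). Several of the 9 members not called act in DNA replication, such as Pcna, at 40.8, 29.3 and 26.7 CPM in the tumors, against 29.1, 25.7 and 25.9 CPM in non-tumor liver (log2 fold change 0.23 ± 0.25, adjusted p = 0.509), and Mcm4.

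Of 16 D cyclins, CDK inhibitors and related regulators, 6 rose (37.5%) and 0 fell (median 0.57). Ccnd1, cyclin D1, read 95.5, 133 and 126 CPM in the tumors, against 16.5, 14.2 and 12.6 CPM in non-tumor liver (log2 fold change 2.94 ± 0.25, adjusted p = 7.74e-05). All 3 tumors were alike and far above non-tumor liver. Cdkn2c, the CDK inhibitor p18, read 13.2, 8.76 and 12.2 CPM in the tumors, against 3.47, 2.30 and 2.54 CPM in non-tumor liver (log2 fold change 1.71 ± 0.27, adjusted p = 0.00111). Cdkn2b, the inhibitor p15, split the tumors, with 29.7, 33.3 and 1.96 CPM in the tumors, against 0.656, 0.296 and 1.04 CPM in non-tumor liver (log2 fold change 3.16 ± 0.87, adjusted p = 0.0184), and was not called without mouse dHEP-155 (adjusted p = 0.130) or mouse dHEP-164 (adjusted p = 0.117). The rises numbered 2 without mouse dHEP-155 and 4 without mouse dHEP-165. Cdk6 rose by a smaller amount (0.99 ± 0.23, adjusted p = 0.00796), with adjusted p = 0.0815 without mouse dHEP-155. Myc, at 26.7, 7.82 and 39.7 CPM in the tumors, against 12.4, 24.96 and 5.18 CPM in non-tumor liver, was not called.

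Of 20 genes that respond to MAPK signalling, 9 rose (45.0%) and 0 fell (median 0.83). They included Ccnd1 and the phosphatases that dampen the pathway. Dusp4 read 45.4, 42.0 and 56.5 CPM in the tumors, against 4.31, 7.92 and 5.27 CPM in non-tumor liver (log2 fold change 2.86 ± 0.46, adjusted p = 0.00114), and Dusp6, specific for ERK, read 230.2, 204 and 91.2 CPM in the tumors, against 74.3, 77.7 and 64.2 CPM in non-tumor liver (log2 fold change 1.17 ± 0.31, adjusted p = 0.0165). Il1rn, the interleukin-1 receptor antagonist, read 115, 84.4 and 14.1 CPM in the tumors, against 3.75, 2.22 and 2.92 CPM in non-tumor liver (log2 fold change 3.76 ± 0.57, adjusted p = 0.000813). In each case the tumors were above non-tumor liver, and the tumor of mouse dHEP-165 was the lowest for Dusp6 and Il1rn and the highest for Dusp4. The Sprouty genes Spry1 and Spry2 were not called. The rises numbered 5 without mouse dHEP-155 and 6 without mouse dHEP-164. The call of Dusp6 was lost without mouse dHEP-155 (adjusted p = 0.127) or without mouse dHEP-164 (adjusted p = 0.0750).

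Of 20 p53 target genes, 9 rose (45.0%) and 2 fell (10%), with a median of 0.64. Gtse1, a mitotic regulator of p53, read 10.1, 4.91 and 2.57 CPM in the tumors, against 1.12, 0.222 and 0.753 CPM in non-tumor liver (log2 fold change 1.89 ± 0.32, adjusted p = 0.00155), and Tnfrsf10b, the death receptor for TRAIL, read 20.5, 8.58 and 3.78 CPM in the tumors, against 1.22, 0.585 and 0.744 CPM in non-tumor liver (log2 fold change 2.44 ± 0.42, adjusted p = 0.00159). Bax, the pore-forming cell death protein, read 27.8, 17.3 and 21.9 CPM in the tumors, against 14.5, 12.96 and 10.2 CPM in non-tumor liver (log2 fold change 0.77 ± 0.19, adjusted p = 0.00966). That of mouse dHEP-155 was the highest tumor for all 3. Ei24, an endoplasmic reticulum protein, fell (-0.86 ± 0.17, adjusted p = 0.00336). Mdm2 and Ccng1, which p53 induces strongly, were not called (0.59 ± 0.27, adjusted p = 0.118 for Mdm2). Cdkn1a and Phlda3, other targets of the list, were called higher (1.78 and 1.96). Cdkn1a lost its call without mouse dHEP-155 (adjusted p = 0.0954) or without mouse dHEP-165 (adjusted p = 0.112). Phlda3 lost its call without mouse dHEP-155 (adjusted p = 0.286) or without mouse dHEP-164 (adjusted p = 0.128). Only 2 of the 20 were called higher without mouse dHEP-155, and 5 without mouse dHEP-165; Bax lost its call in both cases (adjusted p = 0.0632 and 0.0632).

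Cytosolic ribosomal proteins were slightly higher, with 19 of 45 that rose (42.2%), 0 that fell and a median of 0.52; under median-of-ratios scaling 9 were called. Rpl38 read 147, 114 and 131 CPM in the tumors, against 67.7, 63.4 and 71.5 CPM in non-tumor liver (log2 fold change 0.94 ± 0.15, adjusted p = 0.00123), and Rps12 read 297, 155.2 and 177 CPM in the tumors, against 96.0, 97.3 and 80.2 CPM in non-tumor liver (log2 fold change 1.14 ± 0.23, adjusted p = 0.00403). Rpl13 rose by 0.75 ± 0.16, adjusted p = 0.00530. The tumor of mouse dHEP-164 was the lowest of the 3 for these genes. Ribosomal protein genes have many processed pseudogenes that can share reads. The rises numbered 4 without mouse dHEP-155, 28 without mouse dHEP-164 and 3 without mouse dHEP-165. The call of Rpl13 was lost without mouse dHEP-155 (adjusted p = 0.0504).

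Of 30 glycolysis and gluconeogenesis genes, 8 rose (26.7%) and 2 fell, with a median of 0.02 that turned to -0.11 under median-of-ratios scaling. Pck2, the mitochondrial isoform of PEPCK, rose while Pck1 fell, with 27.0, 10.9 and 6.82 CPM in the tumors, against 1.78, 2.52 and 2.17 CPM in non-tumor liver (log2 fold change 2.13 ± 0.35, adjusted p = 0.00133). Gpi1, glucose-6-phosphate isomerase, read 598, 198 and 412 CPM in the tumors, against 128, 128 and 135 CPM in non-tumor liver (log2 fold change 1.48 ± 0.26, adjusted p = 0.00197). Hk1, a hexokinase that adult hepatocytes barely express, read 17.99, 5.96 and 31.3 CPM in the tumors, against 5.53, 3.93 and 4.33 CPM in non-tumor liver (log2 fold change 1.55 ± 0.34, adjusted p = 0.00596), highest in the tumor of mouse dHEP-165. G6pc, which releases glucose, fell, with 191, 60.1 and 219.5 CPM in the tumors, against 1807, 578 and 381 CPM in non-tumor liver (log2 fold change -2.42 ± 0.66, adjusted p = 0.0175). The rises numbered 3 without mouse dHEP-155, and G6pc lost its call without mouse dHEP-164 (adjusted p = 0.0959). The call of G6pc was lost without mouse dHEP-155 (adjusted p = 0.126).

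Fetal and tumor marker genes formed the list with the highest median of the 34 pathway lists. The list was written with earlier results of these data known, and it holds Gpc3, Afp, Cdh17 and Scd2, which are among the 12 largest rises. Of 25 tested members, 16 rose (64.0%) and 0 fell, with a median of 3.05. The medians by mouse were 3.41, 4.01 and 1.66. Golm1, the Golgi protein used as a serum marker of liver cancer, read 193, 144 and 37.1 CPM in the tumors, against 6.47, 5.18 and 4.71 CPM in non-tumor liver (log2 fold change 3.995 ± 0.51, adjusted p = 0.000341). Anxa2, a membrane-binding annexin, read 500.5, 237 and 114 CPM in the tumors, against 26.5, 13.8 and 17.0 CPM in non-tumor liver (log2 fold change 3.62 ± 0.48, adjusted p = 0.000373), and S100a11, a calcium-binding protein, read 85.5, 23.1 and 20.1 CPM in the tumors, against 4.59, 2.96 and 3.95 CPM in non-tumor liver (log2 fold change 2.88 ± 0.45, adjusted p = 0.00101). Their order was the same in each, highest in mouse dHEP-155 and lowest in mouse dHEP-165. Ly6d, a surface protein linked to the liver progenitor state, read 504, 274 and 1.69 CPM in the tumors, against 4.97, 0.518 and 1.51 CPM in non-tumor liver (log2 fold change 4.67 ± 1.44, adjusted p = 0.0300), and the tumor of mouse dHEP-165 overlapped non-tumor liver. Its adjusted p was 0.183 without mouse dHEP-155. Tspan8, Tff3, Igf2, Epcam and Cd44 were not called. Igf2, a fetal growth factor, read 20.5, 0.0584 and 3.11 CPM in the tumors, against 0.469, 0.444 and 0.847 CPM in non-tumor liver. The rises numbered 9 without mouse dHEP-155, 9 without mouse dHEP-164 and 17 without mouse dHEP-165. The call of Ly6d was lost without mouse dHEP-164 (adjusted p = 0.180).

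Few secreted plasma proteins passed the test. Of 24 hepatocyte secreted proteins, 4 rose (16.7%) and 2 fell (8.33%), shares below those over all genes (18.1% and 11.2%), and the median of 0.09 turned to -0.04 under median-of-ratios scaling. Alb, albumin, read 67798, 118730.1 and 102686 CPM in the tumors, against 39629.6, 32395 and 35638 CPM in non-tumor liver. Every tumor was above every non-tumor liver, but the difference did not pass the test (log2 fold change 1.39 ± 0.73, adjusted p = 0.173). Apoa4, an apolipoprotein of lipid transport, read 3794, 2707 and 1675 CPM in the tumors, against 268, 94.2 and 137 CPM in non-tumor liver (log2 fold change 4.08 ± 0.55, adjusted p = 0.000464). Apoa5, which lowers plasma triglyceride, fell, with 92.4, 587 and 537 CPM in the tumors, against 978, 1282 and 1139.5 CPM in non-tumor liver (log2 fold change -1.87 ± 0.39, adjusted p = 0.00489). The main HDL proteins had opposite signs. Apoa1 read 8700.5, 18559 and 11216 CPM in the tumors, against 4451, 5407 and 5642 CPM in non-tumor liver (log2 fold change 1.25 ± 0.35, adjusted p = 0.0212), and Apoa2 read 1262, 2189 and 3542 CPM in the tumors, against 5552, 4979.6 and 5793 CPM in non-tumor liver (log2 fold change -1.34 ± 0.29, adjusted p = 0.00600). Without mouse dHEP-155, dHEP-164 and dHEP-165 the rises numbered 2, 1 and 3 and the falls 1, 4 and 2. Apoa1 was not called without mouse dHEP-155 (adjusted p = 0.0583), without mouse dHEP-164 (adjusted p = 0.122) or under median-of-ratios scaling, and Apoa2 not without mouse dHEP-155 (adjusted p = 0.0632).

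Of 30 complement and coagulation genes, 12 fell (40.0%) and 3 rose (10%), with a median of -0.44. The falls included chains of the membrane attack complex and the lectin pathway. C9 read 103, 53.6 and 25.1 CPM in the tumors, against 447, 558 and 401 CPM in non-tumor liver (log2 fold change -3.14 ± 0.38, adjusted p = 0.000268), C8b read 35.5, 94.5 and 122 CPM in the tumors, against 313, 475 and 381 CPM in non-tumor liver (log2 fold change -2.35 ± 0.33, adjusted p = 0.000526), and C8g fell less (-1.004 ± 0.18, adjusted p = 0.00206). Mbl1, a mannose-binding lectin, read 51.1, 37.4 and 39.4 CPM in the tumors, against 182, 171 and 152 CPM in non-tumor liver (log2 fold change -1.96 ± 0.17, adjusted p = 8.77e-05). No tumor overlapped non-tumor liver in these genes. Of the clotting genes, F9 (-0.72 ± 0.14, adjusted p = 0.00290) and F13b (-0.85 ± 0.19, adjusted p = 0.00601) fell and kept their calls whichever mouse was left out. Proc, protein C, fell (-0.55 ± 0.15, adjusted p = 0.0206) and F11 rose (0.87 ± 0.29, adjusted p = 0.0423), while F2 and F5 were not called. The central complement genes C3 and Cfb were not called. Kng1, kininogen, was a riser, with 5172, 8483 and 5992 CPM in the tumors, against 2100.0, 1942 and 2058 CPM in non-tumor liver (log2 fold change 1.66 ± 0.31, adjusted p = 0.00273). The call of Proc was lost without mouse dHEP-155 (adjusted p = 0.154) or without mouse dHEP-164 (adjusted p = 0.0618). The call of F11 was lost without mouse dHEP-155 (adjusted p = 0.133) or without mouse dHEP-164 (adjusted p = 0.151) or without mouse dHEP-165 (adjusted p = 0.0867).

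Of 24 acute phase genes, 6 fell (25.0%, against 11.2% of all genes) and 4 rose (16.7%, against 18.1%), and the median of 0.09 turned to -0.05 under median-of-ratios scaling. Orm3, an orosomucoid, read 1.37, 0.239 and 0 CPM in the tumors, against 10.1, 9.46 and 7.88 CPM in non-tumor liver (log2 fold change -2.82 ± 0.33, adjusted p = 0.000230), with near-identical copies that share reads. Crp, C-reactive protein, read 139.5, 105 and 168.2 CPM in the tumors, against 315, 314 and 302 CPM in non-tumor liver (log2 fold change -1.20 ± 0.26, adjusted p = 0.00530). Lcn2, lipocalin-2, a secreted iron-sequestering protein, rose, with 2689, 206 and 28.8 CPM in the tumors, against 32.7, 9.999 and 7.06 CPM in non-tumor liver (log2 fold change 4.14 ± 0.71, adjusted p = 0.00167). The tumor of mouse dHEP-155 was over 10 times the next tumor for Lcn2, and the tumor of mouse dHEP-165 was below the non-tumor liver of mouse dHEP-155. Without mouse dHEP-155 there were 2 rises. The classic acute phase genes Saa1, Saa2 and Hp were not called.

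Genes that interleukin-17 and NF-kB induce were mostly higher in the tumors. Of 19 tested genes, 13 rose (68.4%) and 0 fell, with a median of 0.996. Nfkbiz, Zc3h12a, Nfkbia, Cebpb, Il1b and S100a8 were not called. Cxcl5, Ccl20, Il6, Csf3, Csf2 and Ccl7 did not pass the filter on low values. Cxcl10, a T cell attractant, read 43.6, 11.7 and 6.55 CPM in the tumors, against 4.02, 2.44 and 3.29 CPM in non-tumor liver (log2 fold change 1.95 ± 0.35, adjusted p = 0.00206). Icam1, an adhesion molecule, read 96.5, 34.2 and 19.2 CPM in the tumors, against 16.3, 10.3 and 10.1 CPM in non-tumor liver (log2 fold change 1.67 ± 0.31, adjusted p = 0.00244), and Ccl2, the monocyte attractant, read 8.87, 4.20 and 3.38 CPM in the tumors, against 1.22, 0.741 and 0.942 CPM in non-tumor liver (log2 fold change 1.64 ± 0.31, adjusted p = 0.00290). All tumors exceeded all non-tumor livers, and the tumor of mouse dHEP-155 was the highest each time. Cxcl1, the neutrophil attractant, read 70.5, 60.6 and 26.0 CPM in the tumors, against 3.47, 8.96 and 11.3 CPM in non-tumor liver (log2 fold change 2.59 ± 0.60, adjusted p = 0.00808). Without mouse dHEP-155, 4 of the 19 were called, against 11 without mouse dHEP-164 and 13 without mouse dHEP-165. The 17 monocyte and macrophage markers summed to 3650.5, 571 and 232 CPM in the tumors and 309, 244 and 228 CPM in non-tumor liver, with Lyz2 and Cd68 not called, and their part in the result was not tested. The call of Cxcl1 was lost without mouse dHEP-155 (adjusted p = 0.0870).

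In the receptor pathway itself, 5 of 12 tested genes rose (41.7%) and 0 fell (median 0.58), and Il17a and Il17f were at 0 in all 6 libraries. Traf3, a negative regulator of the receptor, read 59.8, 27.4 and 24.1 CPM in the tumors, against 22.3, 18 and 13.7 CPM in non-tumor liver (log2 fold change 0.91 ± 0.19, adjusted p = 0.00430). Tnfaip3, the A20 brake on NF-kB, read 37.2, 13.3 and 9.39 CPM in the tumors, against 5.06, 5.48 and 6.21 CPM in non-tumor liver (log2 fold change 1.44 ± 0.33, adjusted p = 0.00805). Il17rd, an orphan receptor of the family, read 5.42, 1.93 and 1.82 CPM in the tumors, against 0.844, 0.518 and 1.04 CPM in non-tumor liver (log2 fold change 1.07 ± 0.28, adjusted p = 0.0137), and Traf2 rose least of these 4 (0.57 ± 0.19, adjusted p = 0.0429). Il17rc, the partner chain, and the adapter Traf3ip2 were not called. Without mouse dHEP-155 only 1 gene of the 12 was called, and Tnfaip3, Il17rd and Traf2 had adjusted p = 0.0707, 0.135 and 0.369.

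Of 30 interferon response genes, 7 rose (23.3%, against 18.1% of all genes) and 1 fell (median 0.34). Beside Cxcl10, Oas1a, an RNA sensor enzyme, read 22.9, 15.02 and 10.9 CPM in the tumors, against 5.68, 5.12 and 3.87 CPM in non-tumor liver (log2 fold change 1.51 ± 0.28, adjusted p = 0.00259), and Ifi44 read 18.5, 9.81 and 13.2 CPM in the tumors, against 7.50, 3.85 and 4.24 CPM in non-tumor liver (log2 fold change 1.27 ± 0.26, adjusted p = 0.00399). Ddx58, the sensor RIG-I, was called at a small rise (0.59 ± 0.14, adjusted p = 0.00823) that was lost without mouse dHEP-155 (adjusted p = 0.0588). Irf7, the factor that amplifies interferon, was the gene that fell (-0.86 ± 0.23, adjusted p = 0.0166). The rises numbered 3 without mouse dHEP-155. Of 9 MHC class II genes 1 rose (11.1%, against 18.1% of all genes), H2-Eb1. It read 125, 33.9 and 23.6 CPM in the tumors, against 26.5, 15.4 and 13.5 CPM in non-tumor liver (log2 fold change 1.35 ± 0.40, adjusted p = 0.0262), with overlapping groups and no call without mouse dHEP-155 or mouse dHEP-164 (adjusted p = 0.213 and 0.0585). Of 10 MHC class I genes 0 rose and 1 fell, the peptide-trimming Erap1 (-0.56 ± 0.12, adjusted p = 0.00485), and the median of 0.11 turned to -0.02 under median-of-ratios scaling. The call of Irf7 was lost without mouse dHEP-164 (adjusted p = 0.0813) or without mouse dHEP-165 (adjusted p = 0.0670).

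Stress programs changed in parts. Of 24 unfolded protein response genes, 8 rose (33.3%) and 1 fell (median 0.51). Trib3, a pseudokinase induced by ATF4, read 70.5, 34.2 and 166 CPM in the tumors, against 5.44, 5.85 and 9.70 CPM in non-tumor liver (log2 fold change 3.27 ± 0.45, adjusted p = 0.000526). Ddit3, the transcription factor CHOP, read 17.0, 11.8 and 162 CPM in the tumors, against 5.38, 5.01 and 6.38 CPM in non-tumor liver (log2 fold change 2.35 ± 0.49, adjusted p = 0.00478), and Atf4 read 140.2, 108 and 161 CPM in the tumors, against 85.3, 74.4 and 68.0 CPM in non-tumor liver (log2 fold change 0.83 ± 0.16, adjusted p = 0.00352). All 3 were highest in the tumor of mouse dHEP-165. Dnajb9, a chaperone of the endoplasmic reticulum, rose (0.89 ± 0.17, adjusted p = 0.00280), while the large chaperones Hspa5, Hsp90b1 and Calr were not called. The rises numbered 5 without mouse dHEP-155 or mouse dHEP-165.

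Of 38 NRF2 targets and glutathione enzymes, 9 rose (23.7%) and 8 fell (21.1%), against 18.1% and 11.2% of all genes. Gpx1, glutathione peroxidase 1, read 205, 264 and 203 CPM in the tumors, against 1221, 1283 and 1270.0 CPM in non-tumor liver (log2 fold change -2.49 ± 0.21, adjusted p = 7.71e-05). Mgst1, a microsomal glutathione transferase, read 695, 469.7 and 698 CPM in the tumors, against 3315, 2726 and 3289 CPM in non-tumor liver (log2 fold change -2.34 ± 0.27, adjusted p = 0.000200), and Ces2a and Ces1d, carboxylesterases, fell too (-2.46 ± 0.26, adjusted p = 0.000162 and -3.25 ± 0.49, adjusted p = 0.000866). All tumors were below all non-tumor livers for these 4. Of the well-known direct NRF2 targets, Gclc, Gclm, Txnrd1, Gsr and Hmox1 were not called. Others rose. Srxn1, sulfiredoxin, read 332, 82.3 and 144 CPM in the tumors, against 46.7, 30.8 and 32.7 CPM in non-tumor liver (log2 fold change 2.10 ± 0.34, adjusted p = 0.00123), and Nqo1, a quinone reductase, read 76.0, 8.29 and 45.6 CPM in the tumors, against 9.09, 5.93 and 6.68 CPM in non-tumor liver (log2 fold change 1.99 ± 0.49, adjusted p = 0.0114). Slc7a11, the cystine importer, read 448, 3.27 and 5.54 CPM in the tumors, against 2.503, 0.606 and 0.474 CPM in non-tumor liver (log2 fold change 3.52 ± 1.04, adjusted p = 0.0247), and without mouse dHEP-155 it was not called (adjusted p = 0.247). The rises numbered 3 without mouse dHEP-155 and 6 without mouse dHEP-165. The call of Nqo1 was lost without mouse dHEP-155 (adjusted p = 0.108) or without mouse dHEP-165 (adjusted p = 0.0677).

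Of 18 iron genes, 4 rose (22.2%) and 3 fell (16.7%), against 18.1% and 11.2% of all genes. Tfr2, the hepatocyte iron sensor, read 215, 177 and 204 CPM in the tumors, against 438, 430.4 and 408 CPM in non-tumor liver (log2 fold change -1.10 ± 0.14, adjusted p = 0.000305). Slc39a4, a zinc importer known from the intestine, read 274, 295 and 173 CPM in the tumors, against 46.8, 49.7 and 49.3 CPM in non-tumor liver (log2 fold change 2.29 ± 0.31, adjusted p = 0.000451), and Id1, a BMP target, read 7.03, 25.8 and 20.8 CPM in the tumors, against 1.78, 3.11 and 2.07 CPM in non-tumor liver (log2 fold change 2.35 ± 0.39, adjusted p = 0.00127). Aco1, the iron-responsive aconitase, fell (-0.74 ± 0.13, adjusted p = 0.00225). Hamp, hepcidin, the hormone that limits iron uptake, varied widely between tumors and was not called, with 16.4, 43.1 and 384 CPM in the tumors, against 291, 483 and 147 CPM in non-tumor liver. The rises numbered 2 without mouse dHEP-155, and the falls 5 without mouse dHEP-165.

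Matrix genes were mostly higher in tumors. Of 34 tested collagen and matrix genes, 23 rose (67.6%) and 1 fell, with a median of 1.39. Col4a1, of basement membrane, read 472, 184 and 319 CPM in the tumors, against 61.8, 57.3 and 57.5 CPM in non-tumor liver (log2 fold change 2.34 ± 0.21, adjusted p = 9.36e-05). Sparc, a collagen-binding protein, read 228, 144 and 167.2 CPM in the tumors, against 56.9, 47.3 and 51.9 CPM in non-tumor liver (log2 fold change 1.75 ± 0.20, adjusted p = 0.000226). Col1a1, of fibrillar collagen I, read 260.2, 14.1 and 30.3 CPM in the tumors, against 3.47, 2.07 and 2.26 CPM in non-tumor liver (log2 fold change 3.81 ± 0.63, adjusted p = 0.00133). The tumor of mouse dHEP-155 was highest in all 3, and for Col1a1 by over 8 times. Col4a2 and Col5a2 rose as well (2.20 ± 0.22, adjusted p = 0.000122 and 1.99 ± 0.26, adjusted p = 0.000351). Without mouse dHEP-155 the rises of the list numbered 13. The decline was in Dcn, decorin, at 64.5, 72.9 and 57.0 CPM in the tumors, against 248, 182 and 176 CPM in non-tumor liver (log2 fold change -1.61 ± 0.55, adjusted p = 0.0454). Of the 17 stellate cell and fibroblast markers, 3 rose (17.6%), all of them fibrillar collagens, and 5 fell (29.4%, against 11.2% of all genes). Colec11, a stellate cell lectin, read 14.2, 11.1 and 15.5 CPM in the tumors, against 34.6, 31.0 and 30.4 CPM in non-tumor liver (log2 fold change -1.19 ± 0.29, adjusted p = 0.0107), and Lrat, the retinol-storing enzyme, read 13.5, 10.8 and 10.5 CPM in the tumors, against 39.4, 29.7 and 39.1 CPM in non-tumor liver without a call. Reln, Ngfr, Des and Cygb, further markers of stellate cells, were not called either. Without mouse dHEP-155, dHEP-164 or dHEP-165 the falls numbered 2, 0 and 1. Contractile genes were higher, with 6 of 9 that rose (66.7%, against 18.1% of all genes). Acta2, smooth muscle actin, read 30.4, 22.4 and 40.6 CPM in the tumors, against 5.96, 2.53 and 4.28 CPM in non-tumor liver (log2 fold change 2.63 ± 0.26, adjusted p = 0.000122), Myh11, smooth muscle myosin, read 13.2, 10.6 and 21.0 CPM in the tumors, against 5.66, 5.06 and 6.73 CPM in non-tumor liver (log2 fold change 1.18 ± 0.20, adjusted p = 0.00174), and Actg2 and Tagln rose too. The call of Dcn was lost without mouse dHEP-155 (adjusted p = 0.193) or without mouse dHEP-164 (adjusted p = 0.0897) or without mouse dHEP-165 (adjusted p = 0.117). The call of Colec11 was lost without mouse dHEP-155 (adjusted p = 0.0583) or without mouse dHEP-164 (adjusted p = 0.0554).

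Endothelial markers were taken as 2 lists, and the difference between the lists was not tested. Of 17 sinusoidal endothelial markers, 3 fell (17.6%, against 11.2% of all genes) and 0 rose (median -0.99), and without mouse dHEP-155, dHEP-164 and dHEP-165 the falls numbered 1, 2 and 1. The 3 were Rspo3, Wnt2 and Bmp2, signals by which sinusoids instruct hepatocytes. Rspo3, the ligand of Lgr5, read 2.02, 2.16 and 1.42 CPM in the tumors, against 8.34, 9.11 and 8.10 CPM in non-tumor liver (log2 fold change -1.74 ± 0.40, adjusted p = 0.00805). Wnt2 read 0.715, 1.87 and 0.675 CPM in the tumors, against 4.69, 4.59 and 4.33 CPM in non-tumor liver (log2 fold change -1.45 ± 0.35, adjusted p = 0.0101), without a call when mouse dHEP-155 or mouse dHEP-165 was left out (adjusted p = 0.0706 and 0.0502). The call of Bmp2 was lost whichever mouse was left out (adjusted p = 0.270, 0.0877 and 0.0730 without mouse dHEP-155, dHEP-164 and dHEP-165). Summed sinusoidal markers read 606, 856 and 642 CPM in the tumors, against 1050.5, 1002 and 933 CPM in non-tumor liver. Of 16 vascular endothelial markers, 7 rose (43.8%, against 18.1% of all genes) and 0 fell. Cd34, a marker of capillarised vessels, read 27.1, 6.95 and 10.7 CPM in the tumors, against 2.72, 1.78 and 1.79 CPM in non-tumor liver (log2 fold change 2.17 ± 0.26, adjusted p = 0.000266). Esm1, a tip cell proteoglycan, read 31.2, 35.6 and 19.9 CPM in the tumors, against 4.12, 2.44 and 3.11 CPM in non-tumor liver (log2 fold change 2.80 ± 0.41, adjusted p = 0.000710), and Apln, apelin, read 15.8, 7.77 and 5.33 CPM in the tumors, against 0.187, 0.0741 and 0.377 CPM in non-tumor liver (log2 fold change 3.02 ± 0.55, adjusted p = 0.00236). Their summed level was 508, 508 and 431 CPM in the tumors and 567, 492 and 495 CPM in non-tumor liver, so the rise was in some members and not in the sum.

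Resident macrophage markers were mostly lower. Of 14 tested Kupffer cell markers, 9 fell (64.3%, against 11.2% of all genes), 0 rose and 5 were not called. The median was -2.05, and the summed level was 339.6, 370.3 and 277 CPM in the tumors, against 1138, 1184 and 1001 CPM in non-tumor liver. Log2 fold changes ranged over -3.26 to -0.70, and the lowest belongs to a complement gene that is also in the male-biased list. Timd4, a receptor of embryo-derived Kupffer cells, read 1.19, 1.46 and 0.946 CPM in the tumors, against 13.4, 8.96 and 9.70 CPM in non-tumor liver (log2 fold change -2.40 ± 0.44, adjusted p = 0.00224). Cd163, the hemoglobin scavenger receptor, read 4.71, 9.75 and 4.53 CPM in the tumors, against 46.9, 57.5 and 42.5 CPM in non-tumor liver (log2 fold change -2.83 ± 0.57, adjusted p = 0.00364), and Fcna, ficolin-A, read 4.29, 10.3 and 3.92 CPM in the tumors, against 47.6, 50.1 and 46.0 CPM in non-tumor liver (log2 fold change -2.88 ± 0.59, adjusted p = 0.00401). No tumor reached the lowest non-tumor liver. Folr2 fell likewise (-2.21 ± 0.47, adjusted p = 0.00530), with adjusted p = 0.0520 without mouse dHEP-155, and without that mouse 4 of the 9 falls were called. Of 17 monocyte and recruited macrophage markers, 7 rose (41.2%, against 18.1% of all genes) and 0 fell. Cd9 read 142, 65.2 and 18.2 CPM in the tumors, against 14.4, 13.2 and 12.3 CPM in non-tumor liver (log2 fold change 1.99 ± 0.44, adjusted p = 0.00615), Cx3cr1 read 12.7, 2.92 and 2.63 CPM in the tumors, against 0.750, 0.963 and 0.659 CPM in non-tumor liver (log2 fold change 1.70 ± 0.43, adjusted p = 0.0129), and Itgax, CD11c, read 30.5, 5.99 and 3.70 CPM in the tumors, against 2.25, 1.84 and 1.32 CPM in non-tumor liver (log2 fold change 1.87 ± 0.49, adjusted p = 0.0149). Spp1, osteopontin, made by macrophages and bile duct cells, read 3142, 344 and 119 CPM in the tumors, against 35.1, 23.4 and 24.4 CPM in non-tumor liver (log2 fold change 4.17 ± 1.09, adjusted p = 0.0144). All of these were highest in the tumor of mouse dHEP-155, and without it 0 of the 7 were called (adjusted p = 0.0683 for Cd9, 0.132 for Cx3cr1, 0.152 for Itgax and 0.134 for Spp1), against 5 without mouse dHEP-164 and 7 without mouse dHEP-165.

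Other blood cell markers were low. Rises made up 18.2% of the tested T and NK cell markers and 20% of the tested B and plasma cell markers, near the 18.1% of all genes. The share for dendritic cell markers was below 18.1%, and the neutrophil share of 25% rests on 4 tested genes. Of 24 T and NK cell markers 11 passed the filter on low values, and 2 rose, Cd8a (7.43, 4.03 and 1.22 CPM in the tumors, against 0.937, 1.04 and 0.331 CPM in non-tumor liver, 1.39 ± 0.31, adjusted p = 0.00623) and Lck (6.67, 1.81 and 0.540 CPM in the tumors, against 1.78, 0.296 and 0.565 CPM in non-tumor liver, 0.85 ± 0.30, adjusted p = 0.0484). Of 10 tested B and plasma cell markers 2 rose, Jchain (179, 146 and 9.25 CPM in the tumors, against 12.8, 8.37 and 12.4 CPM in non-tumor liver, 2.43 ± 0.69, adjusted p = 0.0209) and Iglc2 (6.31, 5.43 and 0.405 CPM in the tumors, against 0.656, 0.593 and 0.565 CPM in non-tumor liver, 1.33 ± 0.42, adjusted p = 0.0321), neither above the non-tumor range in the tumor of mouse dHEP-165. Of 12 neutrophil markers 4 were tested, and S100a9 rose (9.65, 4.55 and 1.55 CPM in the tumors, against 2.62, 1.48 and 0.753 CPM in non-tumor liver, 1.09 ± 0.35, adjusted p = 0.0376). Of 10 dendritic cell markers Fscn1 alone rose (15.4, 4.55 and 4.73 CPM in the tumors, against 2.16, 2.22 and 2.17 CPM in non-tumor liver, 1.34 ± 0.31, adjusted p = 0.00798). All 6 of these genes lost their call without mouse dHEP-155 (adjusted p = 0.0678, 0.318, 0.169, 0.235, 0.220 and 0.0776 in the order given), and Lck, Jchain, Iglc2 and S100a9 without mouse dHEP-164 (adjusted p = 0.175, 0.143, 0.170 and 0.113). Among 5 tested red cell genes the erythroid Alas2 fell, with 13.4, 20.6 and 27.0 CPM in the tumors, against 112, 128 and 129 CPM in non-tumor liver (log2 fold change -2.58 ± 0.21, adjusted p = 7.06e-05), and the 4 globin genes, whose copies share reads, were not called.

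Hepatocyte markers were at high levels in both tissues. The summed level of the 13 hepatocyte markers was 116939, 208232 and 177398 CPM in the tumors and 107550.2, 105353 and 105914 CPM in non-tumor liver, and within it Alb stood at 67798, 118730.1 and 102686 CPM in the tumors and 39629.6, 32395 and 35638 CPM in non-tumor liver. The sum was higher in every tumor, and the median log2 fold change of the list had the other sign, at -0.98, and at -1.78, -0.23 and -0.65 by mouse. Of its members, 2 rose (15.4%, against 18.1% of all genes) and 6 fell (46.2%, against 11.2%). Without mouse dHEP-155, dHEP-164 and dHEP-165 the rises numbered 1, 0 and 1 and the falls 3, 4 and 5. Cholangiocyte and progenitor markers summed to 3457, 572 and 329 CPM in the tumors and 288, 289 and 287 CPM in non-tumor liver, and in mouse dHEP-155 mostly through Spp1. Of the 13 tested, 4 rose (30.8%, against 18.1% of all genes, and 1 without mouse dHEP-155) and 1 fell (7.69%, against 11.2%). Krt23, a keratin of stressed hepatocytes and ducts, read 1.91, 7.18 and 101 CPM in the tumors, against 0.844, 1.11 and 1.60 CPM in non-tumor liver (log2 fold change 2.64 ± 0.61, adjusted p = 0.00762), Bicc1 read 76.7, 11.8 and 8.31 CPM in the tumors, against 5.53, 3.53 and 4.61 CPM in non-tumor liver (log2 fold change 1.94 ± 0.61, adjusted p = 0.0340), and the defining keratins Krt19 and Krt7 were not called. Bicc1 was not called without mouse dHEP-155 (adjusted p = 0.290) or mouse dHEP-164 (adjusted p = 0.0681). Of the fat and mesothelial markers 6 of 13 were tested, with Lep and Plin1 at 0 in all 6 libraries. Cfd, adipsin, read 0.179, 0.0584 and 0.0675 CPM in the tumors, against 10.9, 6.44 and 8.10 CPM in non-tumor liver (log2 fold change -3.08 ± 0.42, adjusted p = 0.000464), Car3, a carbonic anhydrase, read 110.4, 154 and 659.9 CPM in the tumors, against 3062, 2824 and 3572 CPM in non-tumor liver (log2 fold change -3.80 ± 0.75, adjusted p = 0.00330), and Fabp4, a fatty acid carrier, rose, with 31.5, 28.03 and 11.4 CPM in the tumors, against 4.87, 5.78 and 7.53 CPM in non-tumor liver (log2 fold change 1.70 ± 0.35, adjusted p = 0.00448; adjusted p = 0.0508 without mouse dHEP-155). Of 15 pancreas and gut markers 2 were tested, Fabp2 and Cela1, neither was called, and Prss1, Try4, Cela3b, Pnlip, Reg1 and Muc2 were at 0 in all 6 libraries. What part the cell types had in the gene changes above was not tested.

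**Figure D3:**
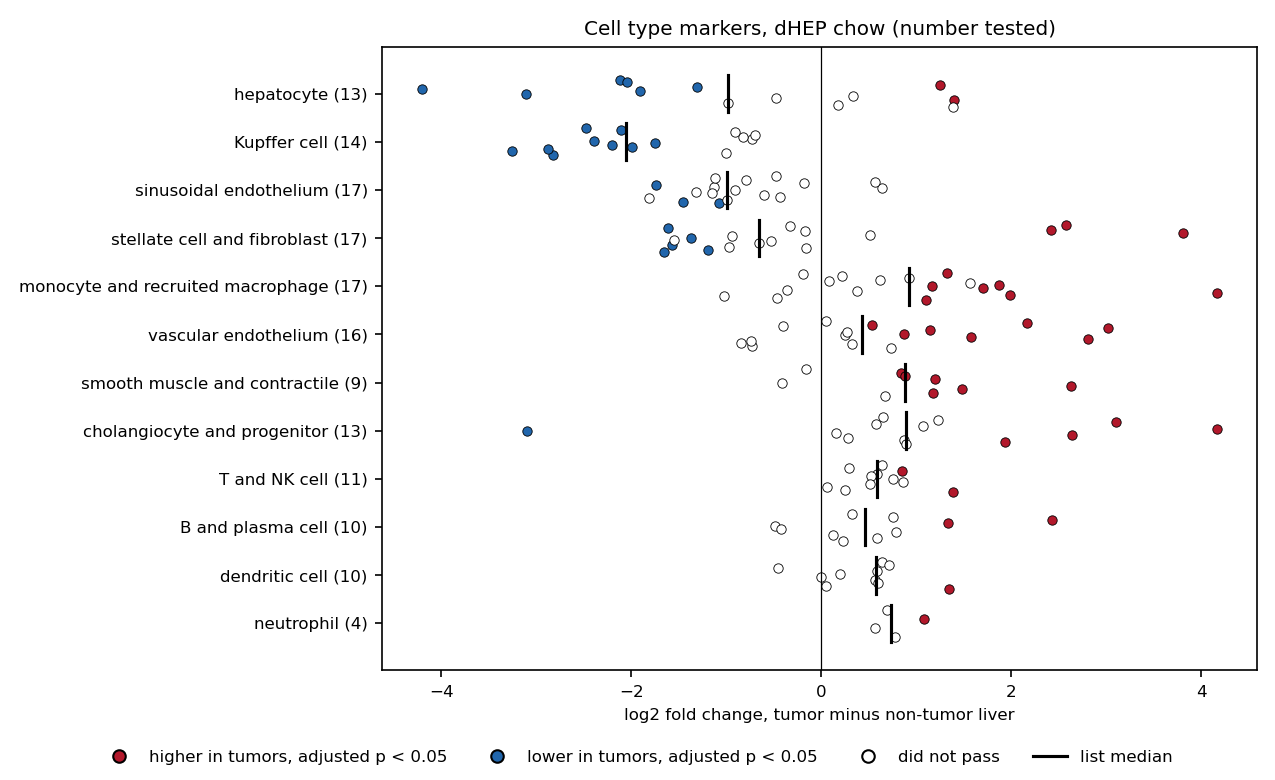
Log2 fold change, tumor minus non-tumor liver, with 1 point for each tested marker gene of 12 cell type lists, red where called higher, blue where called lower and white where not called, and a bar at the list median. Called Kupffer cell markers all lie below 0, with a list median of -2.05, called vascular, contractile and monocyte markers all lie above 0, and hepatocyte and stellate cell markers lie on both sides.

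The 3 tumors differed among themselves. Over all tested genes the within-mouse differences correlated at r = 0.75 between mice dHEP-155 and dHEP-164, 0.61 between dHEP-155 and dHEP-165 and 0.65 between dHEP-164 and dHEP-165, across genes, which are not independent replicates. Genes higher by over 1 on the log2 scale numbered 2658 in mouse dHEP-155, 1196 in mouse dHEP-164 and 1227 in mouse dHEP-165, and genes lower by over 1 numbered 1049, 1146 and 891. A gene was counted as standing apart in a single tumor where 1 pair differed by over 3 on the log2 scale and both other pairs stayed within 1 of 0. There were 26 such genes for mouse dHEP-155 (24 higher, 2 lower), 3 for mouse dHEP-164 (all higher) and 11 for mouse dHEP-165 (9 higher, 2 lower), 40 in all. They are described by their values, with no test.

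In mouse dHEP-155 the largest included Tubb2b, a neuronal tubulin, at 21.6, 0.318 and 0.9995 CPM in the tumors, against 0.177, 0.267 and 0 CPM in non-tumor liver. Itgb4, the epithelial integrin beta-4, read 23.4, 0.175 and 0.0675 CPM in the tumors, against 0.281, 0.370 and 0.659 CPM in non-tumor liver. St14, the epithelial protease matriptase, read 25.1, 1.46 and 0.203 CPM in the tumors, against 0.750, 0.370 and 0.471 CPM in non-tumor liver. Styk1, a kinase-like protein, read 17.99, 0.409 and 0.405 CPM in the tumors, against 0, 0.148 and 0.0941 CPM in non-tumor liver. Pfkp, the platelet phosphofructokinase, read 133, 7.11 and 5.35 CPM in the tumors, against 7.09, 4.03 and 3.44 CPM in non-tumor liver. In each of these 5 genes the tumor of mouse dHEP-155 alone was high. Serpinf1, the angiogenesis inhibitor PEDF, was lower in that tumor, with 22.6, 268 and 301 CPM in the tumors, against 479.9, 488 and 563 CPM in non-tumor liver, and so was Serpina1e, an alpha-1-antitrypsin of nearly identical copies, with 214, 4694 and 2997 CPM in the tumors, against 3139, 8067 and 5694 CPM in non-tumor liver. The same tumor had the highest Hk2 and Pkm, the glycolytic enzymes of dividing cells, at 49.6, 3.04 and 2.97 CPM in the tumors, against 3.94, 5.04 and 4.14 CPM in non-tumor liver for Hk2 and 377, 42.3 and 25.1 CPM in the tumors, against 36.0, 23.3 and 23.5 CPM in non-tumor liver for Pkm, neither called.

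In mouse dHEP-164 the 3 genes were Fgl2, a fibrinogen-like immune regulator, at 19.5, 113 and 5.47 CPM in the tumors, against 12.8, 6.07 and 5.93 CPM in non-tumor liver; Rtl1, an imprinted retrotransposon-derived gene of placenta and fetus, at 1.70, 17.7 and 0 CPM in the tumors, against 0.470, 0.667 and 0.565 CPM in non-tumor liver; and Catsperd, known from the sperm calcium channel, at 1.07, 9.93 and 0.810 CPM in the tumors, against 0.187, 0.296 and 0.847 CPM in non-tumor liver. In mouse dHEP-165 the largest was Egflam, pikachurin, a matrix protein, at 2.14, 0.642 and 68.5 CPM in the tumors, against 0.750, 1.11 and 0.847 CPM in non-tumor liver. Lepr, the leptin receptor, read 7.15, 7.70 and 198 CPM in the tumors, against 6.75, 6.96 and 8.29 CPM in non-tumor liver, and Gadd45a, a stress-induced growth arrest gene, read 7.70, 3.39 and 48.9 CPM in the tumors, against 3.81, 3.47 and 1.27 CPM in non-tumor liver. Each was high in 1 tumor and within 1 of its non-tumor level on the log2 scale in the others. Pde6c, a phosphodiesterase known from cones, read 0.298, 1.46 and 37.6 CPM in the tumors, against 0.187, 0.370 and 0.753 CPM in non-tumor liver. Fancb, of DNA repair, read 2.80, 1.81 and 22.9 CPM in the tumors, against 1.22, 1.19 and 0.847 CPM in non-tumor liver, and Xlr3b, of the X chromosome, read 0.515, 0 and 18.3 CPM in the tumors, against 1.20, 0.285 and 0.845 CPM in non-tumor liver. Nr0b2, the bile acid-induced repressor SHP, was lower in that tumor (29.7, 12.4 and 3.85 CPM in the tumors, against 36.2, 18.6 and 45.4 CPM in non-tumor liver), as was Adgrf1, an adhesion receptor (4.23, 24.4 and 0.540 CPM in the tumors, against 7.12, 12.1 and 14.9 CPM in non-tumor liver). The tumor of mouse dHEP-165 was also the one with non-tumor levels of Cyp7a1 and Cyp8b1 and the lowest Gpc3, Cdh17 and Ly6d.

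Whether the tumor effect depended on diet was asked by subtracting the effect in alcohol-fed dHEP mice (4 pairs) from that in chow-fed dHEP mice (3 pairs) in the same fit. No gene passed (0 of 13281 by limma, 0.0% called; smallest adjusted p = 0.488), and 986 (7.42%) had an unadjusted p under 0.05. The diet also stands for the cohort and for any other feature of that feeding, which cannot be told apart. A p that misses the threshold does not show that the effects were alike. The 5 genes of smallest p were Srgap3, Rapgef4, Col8a1, Aqp9 and Tpm2. Aqp9, the glycerol channel of hepatocytes, read 88.9, 89.7 and 42.7 CPM in the tumors, against 440.4, 405 and 442 CPM in non-tumor liver on chow, and averaged 238 CPM in tumors and 459 CPM in non-tumor liver on alcohol (difference -1.59 ± 0.30). Col8a1, a short-chain collagen, read 16.6, 4.44 and 9.72 CPM in the tumors, against 1.69, 0.444 and 1.32 CPM in non-tumor liver on chow, and averaged 1.57 CPM in tumors and 0.870 CPM in non-tumor liver on alcohol (difference 1.88 ± 0.35). Tpm2, a muscle tropomyosin, read 3.63, 3.85 and 4.93 CPM in the tumors, against 6.84, 4.52 and 6.31 CPM in non-tumor liver on chow, and averaged 3.20 CPM in tumors and 14.98 CPM in non-tumor liver on alcohol (difference 1.57 ± 0.30). Srgap3 and Rapgef4, both signalling regulators of small GTPases, differed by -1.46 ± 0.25 and -1.40 ± 0.25. Each of these 5 had adjusted p = 0.488. With mouse dHEP-164 left out, 1 gene passed, Pcdha11, a clustered protocadherin whose copies share exons (4.70, adjusted p = 0.0264).

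Among the lists, the periportal enzymes had the largest count of genes with an unadjusted p under 0.05 for the difference, though not a singular share. On chow their median log2 fold change was -1.38, and on alcohol it was -0.23, over the same 26 genes. Of the 26, 15 had an unadjusted p under 0.05 for the difference, all 15 lower on chow, against 7.42% of all genes, with a median difference of -1.15 against 0.03 over all genes. None passed the adjustment. Pck1 differed by -2.502 (adjusted p = 0.538) and Sds, serine dehydratase, by -2.59 (adjusted p = 0.523). Cps1 on alcohol read 2287, 1673, 5515 and 13450 CPM in the tumors of mice dHEP-518 and dHEP-520 and then dHEP-549 and dHEP-550, against 5092, 4396, 5618 and 4292 CPM in their non-tumor liver, so the tumor of mouse dHEP-550 stood above all non-tumor livers and those of dHEP-518 and dHEP-520 below (difference -1.81, adjusted p = 0.648). The count of 15 was 3 without mouse dHEP-155, 11 without dHEP-164 and 12 without dHEP-165, and 9 with a median of -0.67 without alcohol mouse dHEP-550, 10 without dHEP-549, 18 without dHEP-518 and 19 without dHEP-520. With the 14 dHEP libraries alone it was 5. Under the same unadjusted p the contractile markers had a like share, 5 of 9 genes (median difference 0.64). The hepatocyte transporters had 6 of 20 (-0.52) and bile acid synthesis had 5 of 17 (-0.58). The collagen list had 11 of 34 genes under the same unadjusted p (median difference 0.78), ranging over 5 to 18 with 1 dHEP mouse left out, the lowest without mouse dHEP-155 and the highest without dHEP-520. The NRF2 list had 11 of 38 (0.18), 5 without mouse dHEP-155, with a median of -0.12, and 7 without dHEP-165. The respiratory chain had 11 of 43 (-0.38), 4 without mouse dHEP-155 and 7 without dHEP-164, 6 without dHEP-550 and 19 without dHEP-165, and 22 without dHEP-518. The cell cycle list had 0 of 50 (0.30), but 25 with a median of 0.78 without alcohol mouse dHEP-550; the median was 0.06 without dHEP-549. The male-biased list had 0 of 24 (-0.67), and its median stood at 0.02 without mouse dHEP-165, -0.17 without dHEP-520, -0.43 without dHEP-549 and -1.33 without dHEP-550, where 4 genes had an unadjusted p under 0.05.

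**Figure D4:**
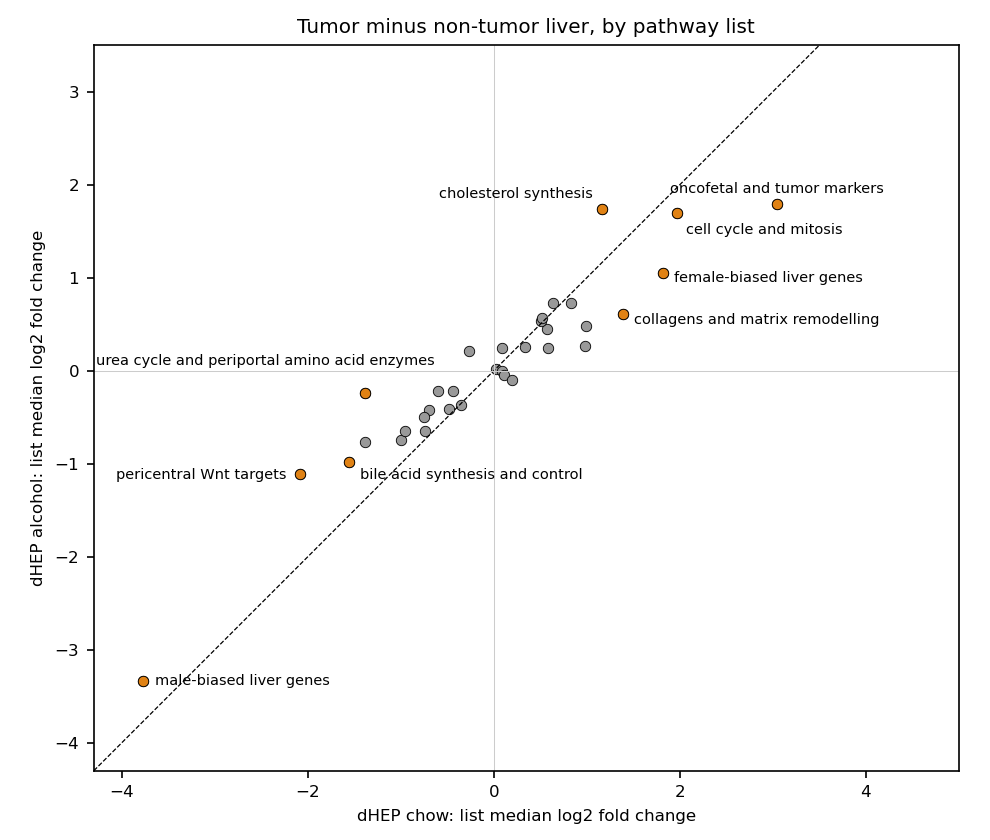
Median log2 fold change, tumor minus non-tumor liver, of each of the 34 pathway lists in chow-fed dHEP mice (x axis) and alcohol-fed dHEP mice (y axis), with the line of equal effect dashed and 9 lists named. The oncofetal, cell cycle, pericentral and male-biased lists have the same sign on both diets, and the periportal list lies furthest above the line, at -1.38 on chow and -0.23 on alcohol.

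Whether the tumor effect differed between the genotypes was asked against chow-fed FF mice, in a fit of all 28 libraries without the animal block. No gene passed by limma (0 of 13503, 0.0% called; smallest adjusted p = 0.441), and 421 (3.12%) had an unadjusted p under 0.05. The smallest p belonged to Ccl25, a chemokine of gut-homing T cells, with 2.08, 2.16 and 1.89 CPM in the tumors, against 4.62, 4.39 and 5.65 CPM in non-tumor liver in dHEP mice, and means of 3.39 CPM in tumors and 2.15 CPM in non-tumor liver of FF mice (difference -1.48 ± 0.29, adjusted p = 0.441). Pcbp1, an RNA-binding protein, read 69.8, 22.7 and 42.1 CPM in the tumors, against 19.4, 19.3 and 16.1 CPM in non-tumor liver in dHEP mice and averaged 24.2 CPM in tumors and 33.5 CPM in non-tumor liver of FF mice (difference 1.56 ± 0.42). Rrbp1, a ribosome-binding protein of the endoplasmic reticulum, differed by 0.72 ± 0.20, the eosinophil gene Prg2 by -1.24 ± 0.32 and the unnamed Gm14295 by -1.35 ± 0.37, each with adjusted p = 1, as for Pcbp1. With mouse dHEP-164 left out, 3 genes passed: Pcdha11 (4.51, adjusted p = 7.87e-05), Dzip1l (2.10, adjusted p = 0.015) and Pcdh19 (2.26, adjusted p = 0.015). Among the lists, the counts under an unadjusted p of 0.05 were 5 of 14 Kupffer cell markers (median difference -1.36), 4 of 16 vascular endothelial markers (-0.62), 3 of 17 monocyte and macrophage markers (-0.91) and 3 of 23 hepatocyte transcription factors (0.02), and 2 or fewer in every other list. The IL-17 induced list had 0 of 19, with a median difference of -0.19.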

How the data were processed

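Total RNA of liver tumors and non-tumor liver was sequenced; the labels name a stranded total RNA kit and also polyA RNA. Per the submitters' processing notes the tools were STAR 2.5.1a and RSEM 1.3.0 with genome build GRCm38, and the authors deposited 1 table of CPM for 22187 genes in 28 libraries, each summing to 1000000. A symbol was paired with 97.59% of the gene IDs. Low values were near whole multiples of 1 read in part of the genes only, so no count model was used, and depth was estimated from that step.

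CPM plus a pseudocount of 1 was taken to log2, and genes that reached 1 CPM in 3 or more libraries were kept. limma 3.58.1 in R 4.3.3 was fitted with a trend, the animal as a block and 1 tumor effect each for dHEP chow (3 pairs), dHEP alcohol (4 pairs) and FF alcohol (4 pairs), which share the estimate of the spread. Benjamini-Hochberg adjustment ran over all genes tested, with a threshold of 0.05. The number in a sample name was taken as the animal. Same-numbered libraries deviated from their group means together at r = 0.19, 0.07 and 0.14 in dHEP chow, 0.15, 0.08, 0.25 and -0.11 in dHEP alcohol, and 0.29, 0.16, 0.30 and 0.36 in FF alcohol. FF chow tumors and non-tumor livers carry different numbers and were not paired.

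Lists were described by counts and medians, with no set test: 34 pathway and 15 marker lists of 1016 genes, of which 929 were tested and 13 were not in the table and not analysed here. The comparison, the lists and the genes were chosen with earlier results of these data known. The genes named were the 12 largest rises and 12 largest falls among called genes without overlap and averaging at least 5 CPM in the higher tissue, up to 4 members of each list by smallest p, the 5 genes in each of the 2 tests of a difference, up to 6 per direction for each single tumor, and Il17ra; some of these are not reported here. Outside that rule, and chosen after their values were seen, were Abcb1a, Abcc4, Alb, Axin2, Bhmt, C3, Calr, Ccng1, Cd44, Cd68, Cela3b, Cfb, Cish, Cpt1a, Cxcl1, Cygb, Cyp1a2, Cyp2a5, Cyp3a44, Cyp7a1, Cyp8b1, Dcn, Des, Dusp6, Dzip1l, Epcam, F11, F13b, F2, F5, F9, Fasn, Fgf21, Foxa3, G6pc, Gclc, Gclm, Glul, Gsr, Hamp, Hao2, Hk2, Hmox1, Hnf4a, Hp, Hsp90b1, Hspa5, Igf2, Igfbp1, Il17a, Il17f, Il17rc, Irf7, Kng1, Krt19, Krt7, Lep, Lgr5, Lrat, Ly6d, Lyz2, Mcm4, Mdm2, Muc2, Mup20, Myc, Ngfr, Nkd1, Nqo1, Oat, Pcdh19, Pcdha11, Pcna, Phgdh, Pkm, Plin1, Plin2, Pnlip, Proc, Prss1, Reg1, Reln, Rnf43, Saa1, Saa2, Scd1, Sds, Slc1a4, Slc7a11, Socs2, Sp5, Spry1, Spry2, Srxn1, Stat5b, Tcf7, Tff3, Top2a, Traf3ip2, Try4, Tspan8, Txnrd1 and Znrf3. Also chosen in that way were Ccl20, Ccl7, Cdkn1a, Cebpb, Csf2, Csf3, Cxcl5, Cyp2c40 and Cyp2c68. So were Cyp2c69, Cyp2c70, Il1b, Il6, Nfkbia, Nfkbiz, Phlda3, S100a8 and Zc3h12a. Promoter sequences came from RefSeq (GRCm38.p6).

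Tried as alternatives were median-of-ratios scaling, sample quality weights, a pseudocount of 0.5, keeping every gene above 0, keeping genes that averaged 5 CPM, fits without the animal block or with the animal as a random effect, fits of fewer libraries, and leaving out each mouse.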

Additional observations from a re-analysis of the deposited data

How the results depend on the processing

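Against 3882 genes called, other settings of the same paired libraries called 4238 (median-of-ratios scaling), 2708 (sample quality weights), 3881 (pseudocount of 0.5), 3618 (every gene above 0) and 3160 (genes that averaged 5 CPM). Without the replicate block 3536 were called, and all 28 libraries gave 3769 without the block and 4500 with the animal as a random effect. The 6 dHEP chow libraries alone, which leave fewer degrees of freedom for the spread, gave 2149 with the replicate block and 1925 without it. Leaving out 1 of the 3 dHEP chow mice gave 1972 to 3214, the lowest without dHEP-155, and leaving out the alcohol mouse dHEP-549 gave 3591. The other alcohol and FF mice were left out in the tests of a difference only, and all omissions of alcohol and FF mice were chosen after seeing the data. Of the 3882 calls, 48.2% were shared without dHEP-155, 70.1% without dHEP-164 and 69.9% without dHEP-165. Among 184 named genes called, 34, 15 and 6 lost the call when dHEP-155, dHEP-164 or dHEP-165 was left out, 38 in the 6 libraries without the block, and at most 13 under any other setting; none reversed. Of the lists, 28, 12 and 7 moved their count of calls by over 1.5 times without those 3 mice. Il17ra (log2 fold change 0.86) was called with the animal as a random effect (0.86, adjusted p = 0.03), ranged over 0.44 to 1.14 with 1 mouse left out, and was called without dHEP-164. Cela1 (0.16, not called) was -0.34 without dHEP-164 and 0.56 without dHEP-165. The tests of a difference called 0 genes under every setting except with dHEP-164 left out, ranging over 0 to 1 against alcohol and 0 to 3 against FF. The genes that stood apart in a single tumor numbered 40, against 48 with a pseudocount of 0.5 and 293 with a threshold of 2. Depth was estimated and not given, so no counting interval was computed, and with 3 mice a p above the threshold does not show that a gene was unchanged.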
